A study of Homo sapiens with 20 samples.

Results

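The integrated stress response and serine synthesis genes described here are 35 genes picked by name, among 78932 gene identifiers in the count table: the transcription factor ATF4 and genes it is known to control, 3 of the kinases that phosphorylate eIF2 alpha, and the enzymes of serine, one-carbon and proline metabolism tied to this pathway. All 35 were found in the table, and 31 held enough counts for testing among the 20957 genes tested. PHGDH, NUPR1, JDP2 and FGF21 did not reach the filter on low counts. Transcripts were measured by poly(A)-selected RNA sequencing in OPM2 cells, an established human multiple myeloma line, which is a cancer of antibody-secreting plasma cells. The cells received DMSO as vehicle, or panobinostat at 10 nM, romidepsin at 10 nM or ricolinostat at 100 nM for 2, 5 or 20 h, with 2 libraries in each of the 10 groups and 20 libraries in all. Panobinostat and ricolinostat are hydroxamic acids, romidepsin is a cyclic depsipeptide, and all 3 inhibit histone deacetylases, ricolinostat with a preference for HDAC6. One label field gives 10 nM for ricolinostat where the titles and the design give 100 nM. No harvest time is labelled for DMSO, so time in culture and the inhibitor cannot be told apart in any contrast with DMSO. The same 2 DMSO libraries serve all 9 contrasts with DMSO, and no group holds cells of a second line or donor.

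Kinases that sense stress, among them PERK (EIF2AK3) for misfolded protein in the endoplasmic reticulum, GCN2 (EIF2AK4) for amino acid shortage and HRI (EIF2AK1) for heme shortage and mitochondrial stress, phosphorylate the initiation factor eIF2. General protein synthesis then falls, while the ATF4 transcript, whose short upstream reading frames hold it back in unstressed cells, is translated better. The ATF4 protein binds CCAAT-enhancer-binding protein-ATF response elements together with C/EBP partners, and turns on genes for amino acid synthesis and transport, for DDIT3 (CHOP) and for the phosphatase subunit PPP1R15A, which ends the response. Plasma cells secrete large amounts of antibody and are known for a high load on the endoplasmic reticulum. RNA counts show transcript levels only, so neither eIF2 phosphorylation nor ATF4 protein was measured.

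The cells were checked against marker genes. All 10 plasma cell markers had counts in DMSO, with a summed level of 7550 CPM (TMM-scaled). That sum was lowest, at 851 CPM, with panobinostat at 20 h. Early B cell markers summed to 4.30 CPM in DMSO (2 of 6 with counts, MS4A1, CD22 and VPREB1 among those at 0) and to at most 16.6 CPM in a group. The summed DMSO level was 0.795 CPM for erythroid markers (3 of 5 with counts), 0.252 for myeloid markers (4 of 7), 0.223 for markers of T and NK cells (5 of 9, CD3D, CD3E, CD8A and KLRD1 at 0), 0.0373 for stromal markers (1 of 4) and 0 for 4 epithelial markers. In the same order these sums reached at most 1.12, 6.99, 1.43, 2.55 and 0.111 CPM in any group, at 20 h of panobinostat or romidepsin. Total counts ran from 17264640 to 29088868 per library. In these bulk libraries fewer cells with a transcript and less of it per cell cannot be told apart.

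The element that ATF4 and its C/EBP partners bind has the core TGATGNAA, and it was looked for in the members' promoters because ATF4 is known to act through it (N stands for any base). RefSeq promoter sequences of build GRCh38.p14, from 250 bases before to 50 bases after a start, were matched to 26 of the 35 members (42 windows of 300 bases). TGATGNAA on either strand was present for 7 of these 26 members (26.9%), against 1217 of 27305 genes (4.46%) in the whole promoter table. Per window the shares were 9 of 42 (21.4%) and 1270 of 35116 (3.62%), and several windows of 1 gene overlap. The 7 sites are shown 5′ to 3′ on the strand of the gene, with the matching letters in capitals, because ATF4 is known to bind this element. Of their genes, 5 (CEBPG, MTHFD1L, PPP1R15B, ASNS and CHAC1) were tested below, while JDP2 and FGF21 held too few counts.
CEBPG: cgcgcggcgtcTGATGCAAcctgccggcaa
MTHFD1L: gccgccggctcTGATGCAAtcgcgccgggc
PPP1R15B: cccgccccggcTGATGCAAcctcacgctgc
ASNS: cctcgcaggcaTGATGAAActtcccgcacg
CHAC1: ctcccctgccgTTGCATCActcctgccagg
JDP2: atagccggggcTGATGCAAcccgtccc
FGF21: aaacaccaggaTTGCATCAgggaggaggag
The CEBPG sequence is chr19:33374060-33374089 (plus strand), that of MTHFD1L chr6:150866346-150866375 (plus strand), of PPP1R15B chr1:204412026-204412055 (minus strand), of ASNS chr7:97872458-97872487 (minus strand), of CHAC1 chr15:40953251-40953280 (plus strand), of JDP2 chr14:75427995-75428021 (plus strand) and of FGF21 chr19:48755459-48755488 (plus strand). The first base of the match lies 42 bases before the start for CEBPG, 68 for ASNS, 16 for JDP2, 54 for FGF21, 209 for CHAC1 and 227 for PPP1R15B. For MTHFD1L it lies 90 or 129 bases before 2 of the listed starts and 25 bases after another. In CHAC1 and FGF21 the core is read on the opposite strand, so that its reverse complement is in capitals. A match is a description of the letters, and 19 matched members without one may hold other forms of the element or sites outside these windows.

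In DMSO the members spanned a wide range of levels. Per kilobase of annotated exon, ATF4 was the highest at 234 CPM per kb, followed by the mitochondrial folate enzyme MTHFD2 at 93.5, DDIT4 at 78.3, the mitochondrial serine enzyme SHMT2 at 73.2, EIF4EBP1 at 59.6 and XPOT at 57.7. PYCR1 at 54.5 and ALDH18A1 at 52.5 CPM per kb came next. Lower levels were found for TRIB3 at 5.81, DDIT3 at 5.00 and CHAC1 at 3.61 CPM per kb. ASNS, asparagine synthetase, stood at 0.257 CPM per kb, and PHGDH, PSAT1, NUPR1, JDP2 and FGF21 had 0 counts in both DMSO libraries. Exon lengths are from GENCODE 29, which may not be the annotation used for counting.

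The members did not move as a block. At 2 h of panobinostat and ricolinostat, SESN2, CTH and PPP1R15A rose while CEBPB, CEBPG and XPOT fell, and by 20 h SHMT2, MTHFD2, MTHFD1L, ALDH1L2, PYCR1 and ALDH18A1, enzymes of mitochondrial one-carbon and proline metabolism, were lower with each inhibitor. With panobinostat, 11 of the 31 tested members were higher and 9 lower than in DMSO at 2 h, where 20.8% and 18.1% of all tested genes were. At 5 h of panobinostat 13 were higher and 14 lower (all genes 30.7% and 25.9%), and at 20 h 9 and 20 (all genes 40.8% and 32.3%). The members' median panobinostat log2 fold change was -0.0049, 0.01 and -1.003 at 2, 5 and 20 h, beside 0.01, 0.12 and 0.25 for all genes. With romidepsin, 4 of the 31 tested members were higher and 8 lower than in DMSO at 2 h, where 3.55% and 4.62% of all tested genes were. At 5 h of romidepsin 4 were higher and 12 lower (all genes 13.0% and 16.5%), and at 20 h 8 and 19 (all genes 38.6% and 29.9%). The members' median romidepsin log2 fold change was -0.04, -0.16 and -0.999 at 2, 5 and 20 h, beside 0.000, 0.02 and 0.22 for all genes. With ricolinostat, 8 of the 31 tested members were higher and 7 lower than in DMSO at 2 h, where 16.9% and 14.5% of all tested genes were. At 5 h of ricolinostat 6 were higher and 11 lower (all genes 18.8% and 15.3%), and at 20 h 3 and 20 (all genes 14.7% and 16.4%). The members' median ricolinostat log2 fold change was -0.03, -0.11 and -0.38 at 2, 5 and 20 h, beside 0.000, 0.02 and 0.03 for all genes. Below, changes are log2 fold changes from edgeR's quasi-likelihood test, ± an SE worked out from its F statistic. Adjusted p-values are Benjamini-Hochberg adjusted over all genes tested, and a gene is said to rise or fall where the adjusted p was under 0.05. Values in threes are for 2, 5 and 20 h in that order, and an adjusted p after the word but is the one found in another fit that ended the call. One after the word passing is from another fit of all libraries, or of all those of the compared groups, in which the value passed. Scaling by library size in place of TMM, called library-size scaling here, gave all genes medians of 0.25 and 0.56 (TMM 0.12 and 0.25) for panobinostat at 5 and 20 h, 0.14 and 0.46 (TMM 0.02 and 0.22) for romidepsin at these times, and 0.13 (TMM 0.03) for ricolinostat at 20 h. That scaling changed the member counts at 5 h of romidepsin to 7 higher and 8 lower (all genes 4212 and 1699 of 20957). At 2 h of romidepsin DESeq2 gave 2 higher and 10 lower (all genes 507 and 1142). At 5 h of ricolinostat it gave 4 higher and 12 lower (all genes 3015 and 3556). Under library-size scaling 27 of the 179 called values moved by more than 1.5 times, and the largest of these was 0.66 in size. The 10 plasma cell markers fell along with the members, 10 of 10 at 20 h of panobinostat, 9 of 10 at 20 h of romidepsin and 9 of 10 at 20 h of ricolinostat, and their part in the members' changes was not tested.

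**Figure D1:**
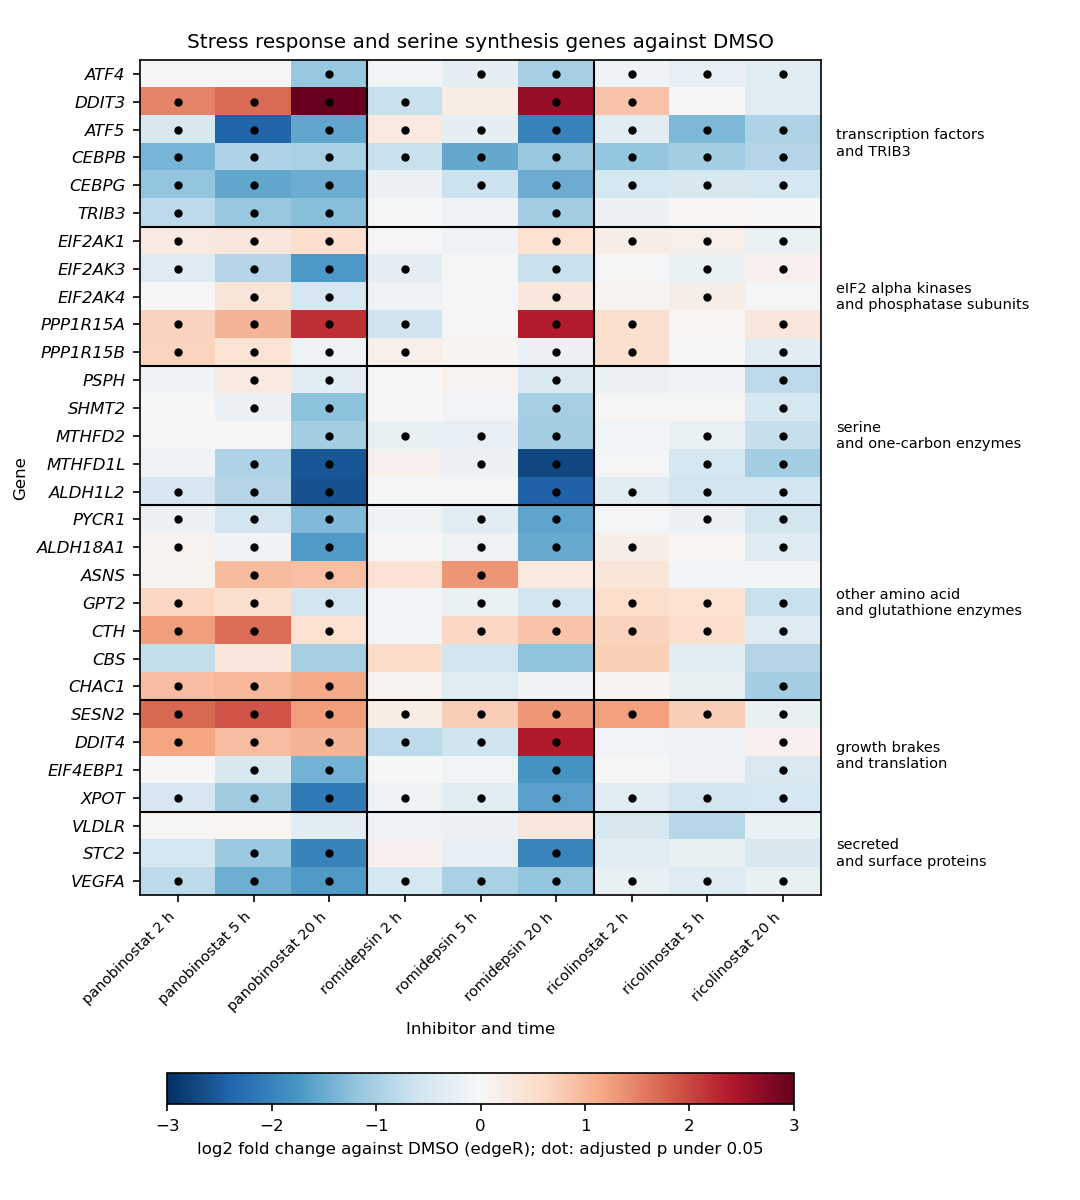
Log2 fold change against DMSO (colour, blue lower and red higher, limited to the range from -3 to 3) for 30 tested members in rows, grouped by role, and the 9 inhibitor and time groups in columns; dots mark adjusted p under 0.05. PSAT1 is left out because it had 0 counts in DMSO. DDIT3 and PPP1R15A are dark red at 20 h of panobinostat and romidepsin (3.02 and 2.64 for DDIT3), as is DDIT4 at 20 h of romidepsin (2.37), and MTHFD1L and ALDH1L2 are among the darkest blue there.

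Some of the smaller counts changed when 1 library was left out, including libraries of groups outside the contrast. No counts over all genes are given for these fits. A general change in calls and one of the members therefore cannot be told apart. The 4 rises at 2 h of romidepsin became 0 without DMSO replicate 1 or either romidepsin 2 h library. They became 1 or 2 without DMSO replicate 2, panobinostat 2 h replicate 2, panobinostat 20 h replicate 2, romidepsin 20 h replicate 1, either ricolinostat 2 h library or ricolinostat 5 h replicate 1. The 3 rises at 20 h of ricolinostat (PPP1R15A, DDIT4 and EIF2AK3) became 1 by DESeq2, and also without DMSO replicate 2, panobinostat 2 h replicate 2, panobinostat 20 h replicate 2, romidepsin 5 h replicate 2, romidepsin 20 h replicate 1, either ricolinostat 2 h library, ricolinostat 5 h replicate 1 or ricolinostat 20 h replicate 1. At 5 h of ricolinostat the 6 rises became 3 without either DMSO library and 2 without ricolinostat 5 h replicate 1, and at 2 h the 7 falls became 11 without ricolinostat 5 h replicate 1.

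Among the transcription factors, DDIT3 rose with panobinostat at each time, while ATF4, ATF5, CEBPB and CEBPG fell or did not pass. Of the 6 tested members of this group (the factors and TRIB3), 1 rose and 5 fell at 20 h of panobinostat (all genes 40.8% and 32.3%) and the same numbers at 20 h of romidepsin (all genes 38.6% and 29.9%). At 20 h of ricolinostat 4 fell and none rose (all genes 16.4% and 14.7%). ATF4 was at 589.8 and 587 CPM in DMSO and, with panobinostat, at 596 and 578 CPM at 2 h, 570.1 and 561 at 5 h, and 264 and 267 at 20 h. Romidepsin gave ATF4 levels of 545 and 559.6 CPM at 2 h, 503 and 479 at 5 h, and 296 and 291 at 20 h. Ricolinostat gave ATF4 levels of 549.9 and 534 CPM at 2 h, 510.1 and 476 at 5 h, and 447 and 467 at 20 h. The ATF4 libraries of panobinostat at 2 h lay on both sides of DMSO, and those at 20 h of panobinostat and romidepsin lay far below it. The ATF4 change with panobinostat was -0.0049 ± 0.04 (adjusted p = 0.97) at 2 h, -0.06 ± 0.04 (adjusted p = 0.19, passing at 0.0022 with only the compared groups fitted) at 5 h and -1.15 ± 0.04 (adjusted p = 6.8e-49) at 20 h. With romidepsin ATF4 was at -0.09 ± 0.04 (adjusted p = 0.14, passing at 0.034 by DESeq2 and 0.021 with only the compared groups fitted), -0.26 ± 0.04 (adjusted p = 1.4e-08) and -1.002 ± 0.04 (adjusted p = 8.2e-44). Ricolinostat gave ATF4 -0.12 ± 0.04 (adjusted p = 0.009), -0.25 ± 0.04 (adjusted p = 1.7e-08) and -0.37 ± 0.04 (adjusted p = 5.8e-14), a fall at each time. ATF4 lies on chromosome 22, 39519695 to 39522685 (GRCh38, plus strand), and no exon of another annotated gene shares its bases.

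DDIT3, the C/EBP-family factor CHOP that is linked to cell death after prolonged stress, showed the largest rise of the members that had counts in DMSO. DDIT3 was at 6.39 and 6.67 CPM in DMSO and, with panobinostat, at 18.6 and 18.02 CPM at 2 h, 22.05 and 20.3 at 5 h, and 53.9 and 52.1 at 20 h. Romidepsin gave DDIT3 levels of 3.77 and 4.41 CPM at 2 h, 7.93 and 7.23 at 5 h, and 43.2 and 38.2 at 20 h. Ricolinostat gave DDIT3 levels of 12.5 and 11.03 CPM at 2 h, 5.81 and 7.49 at 5 h, and 5.14 and 5.03 at 20 h. Every panobinostat library was above both DMSO libraries, and the 20 h romidepsin libraries reached several times the DMSO level while those at 2 h were below it. Panobinostat gave DDIT3 changes of 1.48 ± 0.12 (adjusted p = 1.4e-19), 1.69 ± 0.12 (adjusted p = 1.8e-23) and 3.02 ± 0.11 (adjusted p = 4.3e-45). For romidepsin they were -0.67 ± 0.15 (adjusted p = 0.0011, but 0.059 without romidepsin 2 h replicate 1), 0.22 ± 0.14 (adjusted p = 0.26) and 2.64 ± 0.12 (adjusted p = 1.4e-39). Ricolinostat gave 0.84 ± 0.13 (adjusted p = 3.6e-08), 0.01 ± 0.14 (adjusted p = 1) and -0.36 ± 0.15 (adjusted p = 0.054, passing at 0.046 by DESeq2 and 0.036 with DESeq2-type size factors), so that it rose only at 2 h there. DDIT3 (chromosome 12, 57516588 to 57521737) shares 31.6% of its exonic bases with MARS1 and MBD6 on the opposite strand and 8.03% with a gene on its own, and since the strand setting of the counting is unknown its counts may hold or lack reads of that stretch.

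**Figure D2:**
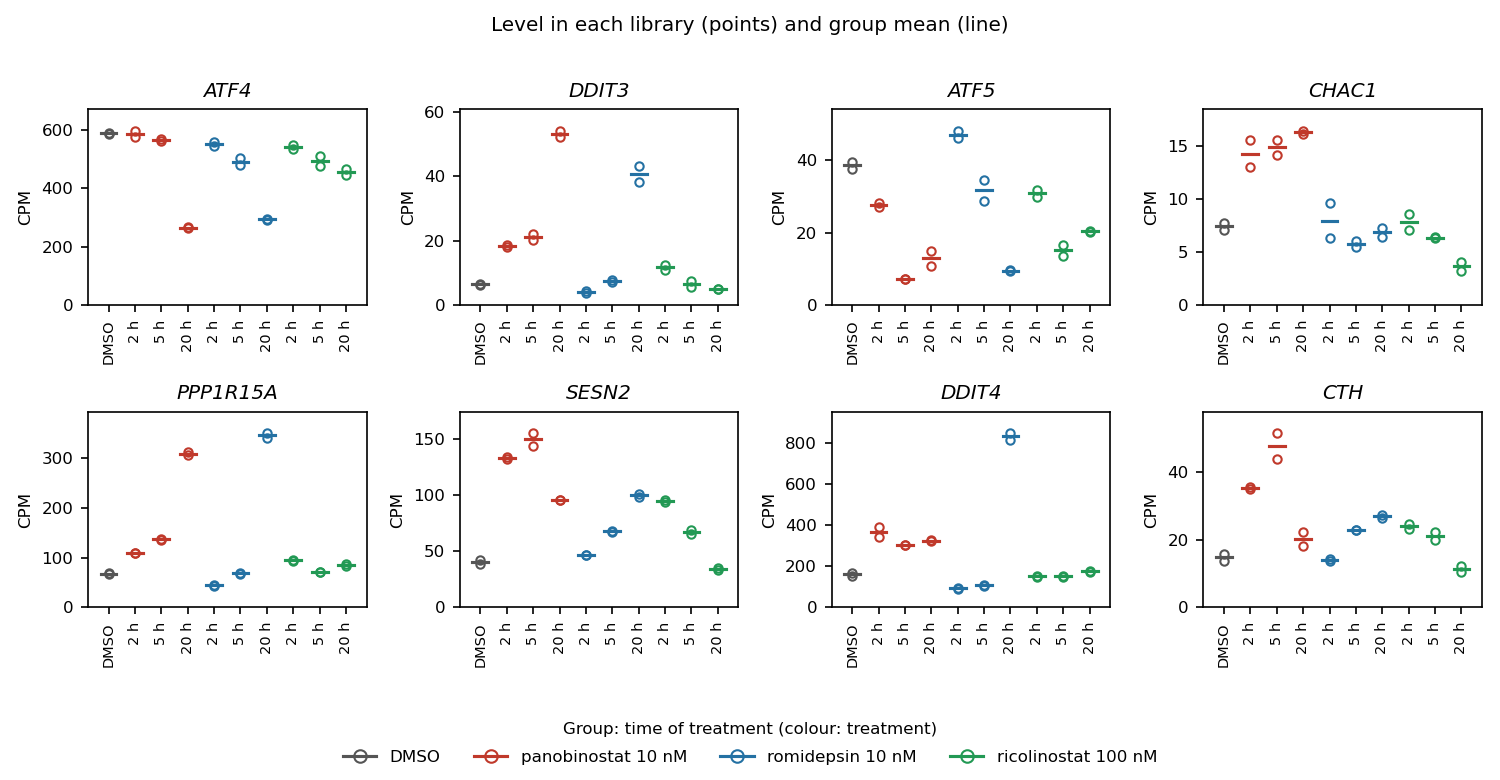
Level in CPM (vertical axes from 0) of 8 members in each of the 20 libraries, by group on the horizontal axis; points are libraries, lines are the means of 2. DDIT3, PPP1R15A and DDIT4 are low at 2 h of romidepsin and high at 20 h, while SESN2 and CTH are highest at 5 h of panobinostat and ATF4 is lowest at 20 h of panobinostat.

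ATF5, a bZIP factor related to ATF4 and known for its part in the mitochondrial stress response, fell most at 5 h of panobinostat. ATF5 was at 37.7 and 39.5 CPM in DMSO and, with panobinostat, at 28.4 and 27.2 CPM at 2 h, 7.35 and 7.22 at 5 h, and 10.96 and 15.03 at 20 h. Romidepsin gave ATF5 levels of 46.1 and 48.1 CPM at 2 h, 34.7 and 28.8 at 5 h, and 9.75 and 9.46 at 20 h. Ricolinostat gave ATF5 levels of 30.03 and 31.8 CPM at 2 h, 16.7 and 13.6 at 5 h, and 20.6 and 20.2 at 20 h. Its panobinostat libraries at 5 h lay below those at 2 and 20 h. Against DMSO the ATF5 changes were -0.48 ± 0.09 (adjusted p = 1e-05), -2.41 ± 0.11 (adjusted p = 3.3e-35) and -1.56 ± 0.10 (adjusted p = 7.9e-27) with panobinostat. Romidepsin gave ATF5 0.29 ± 0.09 (adjusted p = 0.03, but up to 0.27 without either DMSO library or either romidepsin 2 h library and 0.12 by DESeq2) at 2 h, -0.28 ± 0.09 (adjusted p = 0.014, but up to 0.3 without DMSO replicate 2 or romidepsin 5 h replicate 2 and 0.22 under library-size scaling) at 5 h and -2.01 ± 0.11 (adjusted p = 2.3e-32) at 20 h. With ricolinostat ATF5 was at -0.32 ± 0.09 (adjusted p = 0.0037), -1.34 ± 0.10 (adjusted p = 2.7e-21) and -0.92 ± 0.10 (adjusted p = 1.4e-13). ATF5 shares 21.2% of its exonic bases with IL4I1 and NUP62 on the opposite strand.

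CEBPB and CEBPG encode C/EBP partners of ATF4, and CEBPG carries the match shown above 42 bases before its start. CEBPB was at 50.9 and 46.4 CPM in DMSO and, with panobinostat, at 16.98 and 20.01 CPM at 2 h, 27.00 and 24.05 at 5 h, and 24.9 and 24.98 at 20 h. Romidepsin gave CEBPB levels of 30.1 and 30.6 CPM at 2 h, 17.6 and 15.9 at 5 h, and 20.98 and 22.8 at 20 h. Ricolinostat gave CEBPB levels of 21.7 and 21.8 CPM at 2 h, 24.3 and 23.6 at 5 h, and 26.02 and 26.9 at 20 h. All 18 inhibitor libraries had less CEBPB than either DMSO library. Its changes ran from -1.53 at 5 h of romidepsin to -0.68 ± 0.08 at 2 h of romidepsin, and each of the 9 passed (largest adjusted p = 4.7e-10). CEBPG was at 62.00 and 60.2 CPM in DMSO and, with panobinostat, at 28.6 and 24.95 CPM at 2 h, 20.7 and 20.5 at 5 h, and 22.2 and 21.3 at 20 h. Romidepsin gave CEBPG levels of 54.2 and 53.8 CPM at 2 h, 38.7 and 39.9 at 5 h, and 21.8 and 21.99 at 20 h. Ricolinostat gave CEBPG levels of 40.5 and 43.9 CPM at 2 h, 44.2 and 42.8 at 5 h, and 42.5 and 42.8 at 20 h. CEBPG was below both DMSO libraries in all 18 as well, with the 2 h romidepsin libraries closest. CEBPG changed by -1.20 ± 0.08 (adjusted p = 4.9e-27), -1.57 ± 0.08 (adjusted p = 2e-34) and -1.49 ± 0.08 (adjusted p = 6.6e-35) with panobinostat. Romidepsin gave -0.18 ± 0.07 (adjusted p = 0.11, passing at 0.034 with only the compared groups fitted), -0.64 ± 0.07 (adjusted p = 1.8e-12) and -1.48 ± 0.08 (adjusted p = 4.9e-34). Ricolinostat gave CEBPG -0.53 ± 0.07 (adjusted p = 5.8e-10), -0.49 ± 0.07 (adjusted p = 7.4e-09) and -0.52 ± 0.07 (adjusted p = 2.2e-09).

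TRIB3, a pseudokinase that is induced by ATF4 and restrains it, fell with panobinostat at each time and with romidepsin at 20 h. TRIB3 was at 20.7 and 19.3 CPM in DMSO and, with panobinostat, at 11.4 and 11.9 CPM at 2 h, 9.68 and 8.66 at 5 h, and 9.39 and 7.22 at 20 h. Romidepsin gave TRIB3 levels of 19.7 and 19.4 CPM at 2 h, 16.96 and 19.4 at 5 h, and 8.82 and 10.5 at 20 h. Ricolinostat gave TRIB3 levels of 17.9 and 17.7 CPM at 2 h, 21.8 and 19.8 at 5 h, and 20.6 and 19.9 at 20 h. The ricolinostat libraries lay near or within the DMSO range at 5 and 20 h. Panobinostat changed TRIB3 by -0.78 ± 0.12 (adjusted p = 1.5e-08), -1.13 ± 0.12 (adjusted p = 6.7e-14) and -1.28 ± 0.12 (adjusted p = 1.8e-17). Romidepsin gave TRIB3 -0.03 ± 0.11 (adjusted p = 0.97), -0.14 ± 0.11 (adjusted p = 0.4) and -1.04 ± 0.12 (adjusted p = 2.4e-13). The ricolinostat values of TRIB3 were -0.17 ± 0.11 (adjusted p = 0.28), 0.07 ± 0.11 (adjusted p = 0.73) and 0.02 ± 0.11 (adjusted p = 0.94), none of which passed. NUPR1, a small stress-induced chromatin protein, had at most 4 counts in a library and JDP2, an AP-1 family repressor, at most 2, and neither was tested.

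Of the 5 eIF2 alpha kinases and phosphatase subunits, PPP1R15A rose and EIF2AK3 fell at 20 h of both panobinostat and romidepsin. EIF2AK3 encodes PERK, the sensor of the endoplasmic reticulum. EIF2AK3 was at 243 and 248 CPM in DMSO and, with panobinostat, at 185 and 188 CPM at 2 h, 138 and 128 at 5 h, and 77.1 and 70.9 at 20 h. Romidepsin gave EIF2AK3 levels of 199.6 and 206 CPM at 2 h, 235 and 236 at 5 h, and 157 and 154 at 20 h. Ricolinostat gave EIF2AK3 levels of 236 and 243 CPM at 2 h, 217 and 213 at 5 h, and 280.2 and 255 at 20 h. EIF2AK3 was lower at each later time of panobinostat, and no library of that inhibitor reached the DMSO level. The EIF2AK3 change was -0.40 ± 0.04 (adjusted p = 5.7e-13), -0.88 ± 0.05 (adjusted p = 2.9e-33) and -1.73 ± 0.05 (adjusted p = 6.5e-57) with panobinostat. With romidepsin EIF2AK3 was at -0.28 ± 0.04 (adjusted p = 1.7e-06), -0.06 ± 0.04 (adjusted p = 0.36) and -0.66 ± 0.05 (adjusted p = 2.7e-25). Ricolinostat gave EIF2AK3 -0.04 ± 0.04 (adjusted p = 0.62), -0.19 ± 0.04 (adjusted p = 0.00023) and 0.12 ± 0.04 (adjusted p = 0.022, but up to 0.63 without either DMSO library or ricolinostat 20 h replicate 1, 0.092 by DESeq2, 0.086 with DESeq2-type size factors and 0.18 without the low-count filter). An annotated divergent transcript covers part of the 15.1% of its exonic bases that are shared with the opposite strand.

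EIF2AK1 and EIF2AK4 encode the kinases HRI and GCN2. EIF2AK1 was at 143 and 139.7 CPM in DMSO and, with panobinostat, at 165 and 175 CPM at 2 h, 189 and 171 at 5 h, and 198 and 206 at 20 h. Romidepsin gave EIF2AK1 levels of 133 and 142 CPM at 2 h, 130.3 and 130.5 at 5 h, and 196 and 194 at 20 h. Ricolinostat gave EIF2AK1 levels of 157 and 164 CPM at 2 h, 157 and 159 at 5 h, and 122 and 126 at 20 h. EIF2AK1 was above DMSO in every panobinostat library and in the 20 h romidepsin libraries, and below it at 20 h of ricolinostat. Its changes with panobinostat were 0.26 ± 0.05 (adjusted p = 1.3e-06, but 0.053 without panobinostat 2 h replicate 2), 0.35 ± 0.05 (adjusted p = 3.3e-10) and 0.51 ± 0.05 (adjusted p = 2.8e-18). Romidepsin gave EIF2AK1 -0.04 ± 0.05 (adjusted p = 0.72), -0.12 ± 0.05 (adjusted p = 0.052, passing at 0.008 by DESeq2 and 0.0065 with DESeq2-type size factors) and 0.46 ± 0.05 (adjusted p = 1.1e-15). Ricolinostat gave EIF2AK1 0.18 ± 0.05 (adjusted p = 0.00099, but up to 0.46 without DMSO replicate 2 or either ricolinostat 2 h library) at 2 h, 0.16 ± 0.05 (adjusted p = 0.0053, but up to 0.59 without either DMSO library or either ricolinostat 5 h library, 0.12 by DESeq2, 0.11 with DESeq2-type size factors and 0.16 without the low-count filter) at 5 h and -0.19 ± 0.05 (adjusted p = 0.00095, but 0.15 under library-size scaling) at 20 h. EIF2AK4 was at 47.2 and 47.5 CPM in DMSO and, with panobinostat, at 47.3 and 47.7 CPM at 2 h, 59.98 and 62.7 at 5 h, and 33.8 and 33.1 at 20 h. Romidepsin gave EIF2AK4 levels of 45.4 and 42.95 CPM at 2 h, 46.9 and 46.3 at 5 h, and 60.6 and 60.1 at 20 h. Ricolinostat gave EIF2AK4 levels of 49.9 and 50.9 CPM at 2 h, 51.7 and 55.5 at 5 h, and 45.7 and 46.1 at 20 h. EIF2AK4 libraries stood above DMSO at 5 h of panobinostat and below it at 20 h, while the 20 h romidepsin libraries stood above. Its panobinostat changes were 0.0046 ± 0.07 (adjusted p = 1), 0.37 ± 0.07 (adjusted p = 5.4e-07) and -0.50 ± 0.07 (adjusted p = 1.3e-10). With romidepsin EIF2AK4 was at -0.10 ± 0.07 (adjusted p = 0.45), -0.02 ± 0.07 (adjusted p = 0.86) and 0.35 ± 0.07 (adjusted p = 1.4e-06), and with ricolinostat at 0.09 ± 0.07 (adjusted p = 0.35), 0.18 ± 0.07 (adjusted p = 0.028, but up to 0.5 without either DMSO library or either ricolinostat 5 h library, 0.18 by DESeq2, 0.18 with DESeq2-type size factors, 0.25 without the low-count filter and 0.076 with only the compared groups fitted) and -0.05 ± 0.07 (adjusted p = 0.68).

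PPP1R15A (GADD34) is the stress-induced subunit that brings protein phosphatase 1 to eIF2, and PPP1R15B (CReP) is its constitutive counterpart. PPP1R15A was at 67.2 and 68.8 CPM in DMSO and, with panobinostat, at 109 and 110.0 CPM at 2 h, 136 and 138 at 5 h, and 307 and 312 at 20 h. Romidepsin gave PPP1R15A levels of 44.01 and 45.6 CPM at 2 h, 69.3 and 67.2 at 5 h, and 342 and 350.3 at 20 h. Ricolinostat gave PPP1R15A levels of 94.8 and 93.9 CPM at 2 h, 70.3 and 71.2 at 5 h, and 83.2 and 87.9 at 20 h. The 20 h libraries of panobinostat and romidepsin were the highest of all 20, and the 2 h romidepsin libraries the lowest. PPP1R15A changed by 0.68 ± 0.05 (adjusted p = 7.6e-23), 1.01 ± 0.05 (adjusted p = 3.5e-35) and 2.19 ± 0.05 (adjusted p = 4.8e-65) with panobinostat. Romidepsin gave PPP1R15A -0.60 ± 0.05 (adjusted p = 2.5e-16), 0.0046 ± 0.05 (adjusted p = 0.99, passing at 0.034 under library-size scaling) and 2.35 ± 0.05 (adjusted p = 2.8e-67). Ricolinostat gave PPP1R15A 0.47 ± 0.05 (adjusted p = 8.7e-14), 0.06 ± 0.05 (adjusted p = 0.46) and 0.33 ± 0.05 (adjusted p = 5.8e-08). PPP1R15B ranged from 131 to 267 CPM over the 20 libraries, with DMSO at 165 and 167. PPP1R15B, which holds a match 227 bases before its start, was at 0.66 ± 0.04 (adjusted p = 9e-26) at 2 h and 0.40 ± 0.04 (adjusted p = 4.6e-14) at 5 h of panobinostat, and at 0.48 ± 0.04 (adjusted p = 2.9e-17) at 2 h of ricolinostat. At 20 h its values were -0.15 ± 0.04 (adjusted p = 0.0016, turning to 0.15 under library-size scaling, adjusted p = 0.00052) with panobinostat, -0.17 ± 0.04 (adjusted p = 0.00057, turning to 0.070 under library-size scaling, adjusted p = 0.12) with romidepsin and -0.34 ± 0.04 (adjusted p = 7.2e-10) with ricolinostat. Romidepsin gave PPP1R15B 0.16 ± 0.04 (adjusted p = 0.0098, but up to 0.22 without either DMSO library or either romidepsin 2 h library and 0.13 without the low-count filter) at 2 h and 0.09 ± 0.04 (adjusted p = 0.13, passing at 1.4e-05 under library-size scaling and 0.022 with only the compared groups fitted) at 5 h.

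Serine is made from a glycolytic intermediate in 3 steps, by PHGDH, PSAT1 and PSPH in that order. PHGDH, the first and committed enzyme (chromosome 1, 119648411 to 119744226), had 0 counts in all 20 libraries, so no change could be measured. No exon of another GENCODE 29 gene shares its bases, but the annotation used for counting is unknown. A silent gene and reads left unassigned to it cannot be told apart here. The floor of 3 counts over the libraries of a group corresponds to between 0.0510 and 0.0718 CPM. PSAT1, the transaminase of the second step (chromosome 9, 78297143 to 78330093), also had 0 counts in both DMSO libraries. Its panobinostat libraries held 7 and 6 counts at 2 h, 13 and 22 at 5 h and 28 and 29 at 20 h. Romidepsin gave PSAT1 counts of 3 and 6, 6 and 5 and 21 and 36 at the same times, and ricolinostat 2 and 2, 6 and 2 and 4 and 0. No library exceeded 36 counts, so the gene remained near the limit of detection even where it rose. With panobinostat, PSAT1 was at 4.62 times the floor of 3 counts over both DMSO libraries at 2 h (adjusted p = 0.0025). It was at 14.1 times that floor at 5 h (adjusted p = 2.9e-06) and 16.3 times at 20 h (adjusted p = 4.4e-07). Such ratios leave out the counting error of the treated libraries, so they are not lower bounds of the change. At 20 h of romidepsin PSAT1 was at 18.9 times that floor (adjusted p = 2.1e-07). Smaller counts passed at 2 h (adjusted p = 0.044) and 5 h of romidepsin (adjusted p = 0.0071) and at 5 h of ricolinostat (adjusted p = 0.019). These were at 3.23, 3.94 and 2.84 times the floor. Their adjusted p was up to 0.24 without either DMSO library or either romidepsin 2 h library and 0.094 without the low-count filter at 2 h of romidepsin, up to 0.069 without either DMSO library at 5 h of romidepsin, and up to 0.17 without either DMSO library or ricolinostat 5 h replicate 1 at 5 h of ricolinostat. Ricolinostat at 2 and 20 h did not pass (adjusted p = 0.11 and 0.1). In the deposited table values of 2 (76134) outnumber values of 1 (43567), so 1 fragment may count as 2. These small counts would then stand for fewer fragments, and the ratios to the floor could be too high by 2-fold.

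PSPH, the phosphatase of the third step, was well measured. PSPH was at 38.5 and 37.2 CPM in DMSO and, with panobinostat, at 33.1 and 36.3 CPM at 2 h, 44.9 and 45.9 at 5 h, and 30.8 and 29.9 at 20 h. Romidepsin gave PSPH levels of 37.7 and 38.7 CPM at 2 h, 42.2 and 38.6 at 5 h, and 27.3 and 27.6 at 20 h. Ricolinostat gave PSPH levels of 32.9 and 33.6 CPM at 2 h, 36.3 and 33.8 at 5 h, and 25.1 and 18.9 at 20 h. The PSPH libraries at 5 h of panobinostat were the highest and those at 20 h of ricolinostat the lowest. The PSPH changes with panobinostat were -0.12 ± 0.08 (adjusted p = 0.26), 0.26 ± 0.08 (adjusted p = 0.0031, but up to 0.081 without DMSO replicate 2 or panobinostat 5 h replicate 2) and -0.32 ± 0.08 (adjusted p = 3e-04, but 0.89 under library-size scaling). Romidepsin gave PSPH 0.01 ± 0.08 (adjusted p = 0.99), 0.10 ± 0.08 (adjusted p = 0.4, passing at 0.025 under library-size scaling) and -0.46 ± 0.08 (adjusted p = 5.7e-07). Ricolinostat gave PSPH -0.18 ± 0.08 (adjusted p = 0.075, passing at 0.021 with DESeq2-type size factors, 0.049 under library-size scaling and 0.024 with only the compared groups fitted), -0.11 ± 0.08 (adjusted p = 0.35) and -0.78 ± 0.09 (adjusted p = 4.7e-13). Of the 6 tested enzymes of serine and one-carbon metabolism, 5 fell at 20 h with each inhibitor, with PSAT1 as the exception (all genes 32.3%, 29.9% and 16.4% lower with panobinostat, romidepsin and ricolinostat). The median change of the 6 was -1.13, -1.01 and -0.62 with panobinostat, romidepsin and ricolinostat. PSAT1 is the highest of the 6 both at its fitted value and at its ratio to the floor, so the medians are the same either way.

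The mitochondrial one-carbon enzymes pass a carbon unit from serine to formate for the making of nucleotides. MTHFD1L, the last enzyme of that route, releases formate, and its promoter holds a match shown above. MTHFD1L was at 109.6 and 114 CPM in DMSO and, with panobinostat, at 101 and 106 CPM at 2 h, 58.4 and 58.5 at 5 h, and 18.8 and 19.1 at 20 h. Romidepsin gave MTHFD1L levels of 122 and 123 CPM at 2 h, 101 and 96.7 at 5 h, and 16.6 and 17.3 at 20 h. Ricolinostat gave MTHFD1L levels of 108 and 109 CPM at 2 h, 83.1 and 71.2 at 5 h, and 50.4 and 57.8 at 20 h. At 20 h of panobinostat and romidepsin the 4 libraries held under 20 CPM, below every other library. MTHFD1L changed by -0.11 ± 0.06 (adjusted p = 0.11, passing at 0.049 by DESeq2 and 0.018 with DESeq2-type size factors), -0.94 ± 0.06 (adjusted p = 1.6e-26) and -2.56 ± 0.07 (adjusted p = 1.6e-58) with panobinostat. Romidepsin gave MTHFD1L 0.13 ± 0.06 (adjusted p = 0.17, passing at 0.03 under library-size scaling and 0.021 with only the compared groups fitted), -0.18 ± 0.06 (adjusted p = 0.014, but up to 0.11 without DMSO replicate 2 or romidepsin 5 h replicate 2 and 0.58 under library-size scaling) and -2.72 ± 0.07 (adjusted p = 3.4e-59). With ricolinostat MTHFD1L was at -0.04 ± 0.06 (adjusted p = 0.64), -0.53 ± 0.06 (adjusted p = 3.7e-13) and -1.05 ± 0.06 (adjusted p = 2.3e-28). ALDH1L2 oxidises formyl-tetrahydrofolate in mitochondria to make NADPH. ALDH1L2 was at 157 and 149 CPM in DMSO and, with panobinostat, at 102 and 112 CPM at 2 h, 81.1 and 85.3 at 5 h, and 24.5 and 25.3 at 20 h. Romidepsin gave ALDH1L2 levels of 154 and 151 CPM at 2 h, 146 and 148 at 5 h, and 28.7 and 28.6 at 20 h. Ricolinostat gave ALDH1L2 levels of 118 and 121 CPM at 2 h, 105 and 102 at 5 h, and 103 and 107 at 20 h. The ALDH1L2 level fell at each time of panobinostat, and only at 20 h of romidepsin. Panobinostat gave ALDH1L2 -0.51 ± 0.05 (adjusted p = 1.7e-15), -0.88 ± 0.05 (adjusted p = 8e-29) and -2.62 ± 0.06 (adjusted p = 8.2e-65). Romidepsin gave it -0.0021 ± 0.05 (adjusted p = 1), -0.06 ± 0.05 (adjusted p = 0.43) and -2.41 ± 0.06 (adjusted p = 1.9e-61). Ricolinostat gave ALDH1L2 -0.35 ± 0.05 (adjusted p = 6.4e-09), -0.56 ± 0.05 (adjusted p = 6.2e-17) and -0.55 ± 0.05 (adjusted p = 4.6e-16).

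SHMT2, which splits serine into glycine and the carbon unit, and MTHFD2, which oxidises that unit, were the most abundant enzymes of the group. SHMT2 ranged from 148 to 375 CPM over the 20 libraries, with DMSO at 352 and 356. It changed by -1.23 ± 0.04 (adjusted p = 3.5e-48) at 20 h of panobinostat, -0.999 ± 0.04 (adjusted p = 1.3e-40) at 20 h of romidepsin and -0.53 ± 0.04 (adjusted p = 5.2e-20) at 20 h of ricolinostat. At 5 h of panobinostat SHMT2 was at -0.18 ± 0.04 (adjusted p = 0.00013, but 0.28 under library-size scaling), and its other values at 2 and 5 h did not pass. At 5 h of romidepsin SHMT2 was at -0.07 ± 0.04 (adjusted p = 0.18, passing at 0.037 by DESeq2 and 0.029 with DESeq2-type size factors). MTHFD2 ranged from 219 to 473 CPM over the 20 libraries, with DMSO at 451 and 460.1. Its 20 h changes were -1.03 ± 0.04, -1.02 ± 0.04 and -0.70 ± 0.04 with panobinostat, romidepsin and ricolinostat (largest adjusted p = 1.7e-29). With ricolinostat MTHFD2 was at -0.08 ± 0.04 (adjusted p = 0.11, passing at 0.0011 by DESeq2, 0.0085 with DESeq2-type size factors, 0.028 under library-size scaling and 0.0034 with only the compared groups fitted) at 2 h and -0.19 ± 0.04 (adjusted p = 2.4e-05) at 5 h. At 2 and 5 h MTHFD2 was at -0.22 ± 0.04 (adjusted p = 1.3e-05) and -0.26 ± 0.04 (adjusted p = 2.8e-08) with romidepsin. With panobinostat it was at 0.05 ± 0.04 (adjusted p = 0.38) and 0.01 ± 0.04 (adjusted p = 0.78, passing at 0.00022 under library-size scaling). MTHFD2 shares 33.2% of its exonic bases with genes on the opposite strand.

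**Figure D3:**
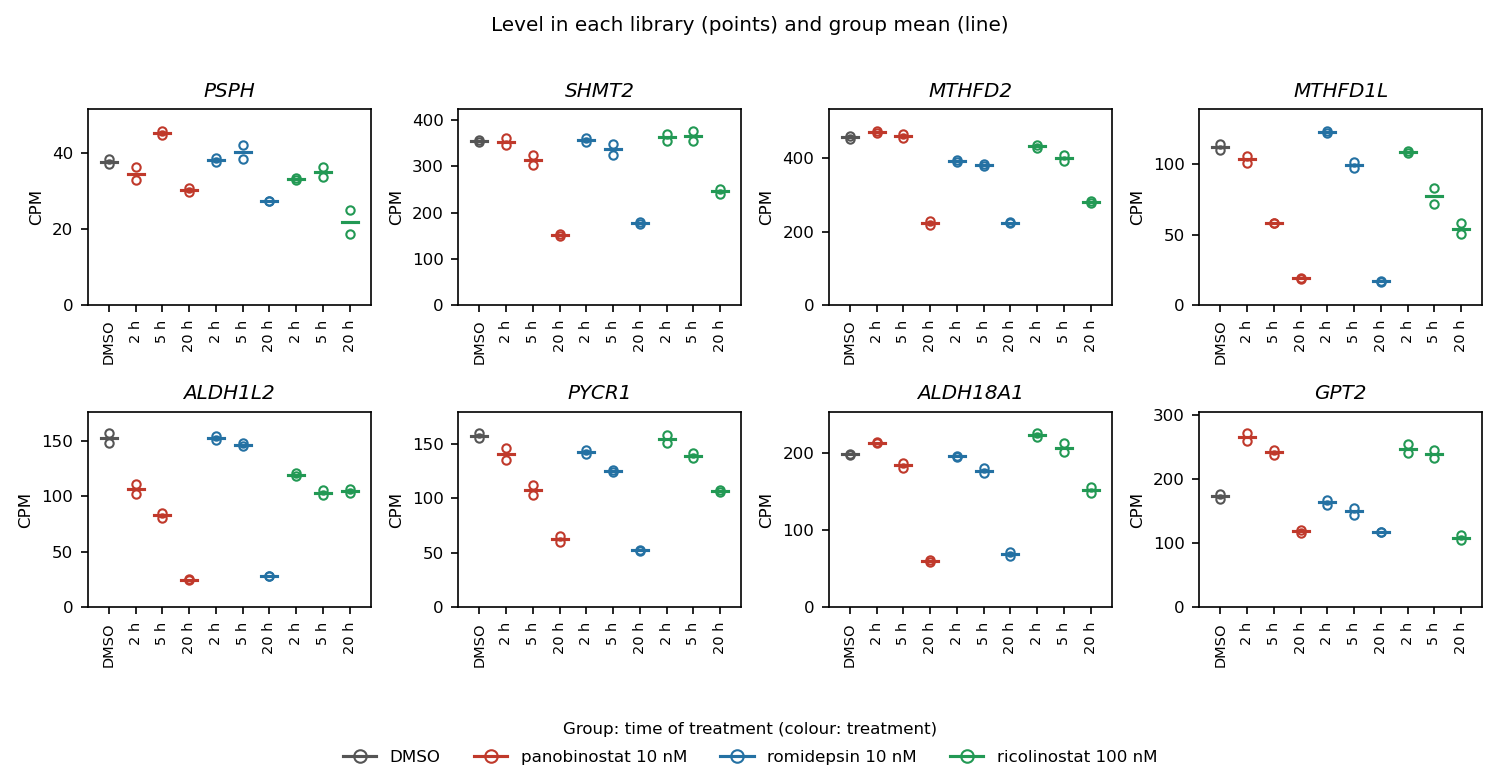
Level in CPM (vertical axes from 0) of 8 enzymes of serine, one-carbon, proline and alanine metabolism in each of the 20 libraries, by group; points are libraries and lines the means of 2. At 20 h of panobinostat and romidepsin each of the 8 enzymes lies below DMSO, MTHFD1L at under 20 CPM, and GPT2 is above DMSO at 2 and 5 h of panobinostat and ricolinostat.

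PYCR1 and ALDH18A1 are enzymes of proline synthesis, ALDH18A1 at its first steps and PYCR1 at its last. PYCR1 was at 159.6 and 155 CPM in DMSO and, with panobinostat, at 146 and 135 CPM at 2 h, 103 and 112 at 5 h, and 59.6 and 65.4 at 20 h. Romidepsin gave PYCR1 levels of 141 and 145 CPM at 2 h, 126 and 124 at 5 h, and 52.5 and 52.00 at 20 h. Ricolinostat gave PYCR1 levels of 158 and 150.5 CPM at 2 h, 142 and 137 at 5 h, and 108 and 106 at 20 h. PYCR1 was lowest at 20 h of romidepsin and panobinostat, where all 4 libraries stood under every other. Panobinostat changed PYCR1 by -0.17 ± 0.05 (adjusted p = 0.0041), -0.55 ± 0.05 (adjusted p = 3.2e-17) and -1.33 ± 0.05 (adjusted p = 1e-43). Romidepsin gave PYCR1 -0.14 ± 0.05 (adjusted p = 0.064, passing at 0.034 by DESeq2, 0.03 with DESeq2-type size factors and 0.01 with only the compared groups fitted), -0.33 ± 0.05 (adjusted p = 2.8e-08) and -1.59 ± 0.05 (adjusted p = 6.9e-49). Ricolinostat gave PYCR1 -0.03 ± 0.05 (adjusted p = 0.72), -0.18 ± 0.05 (adjusted p = 0.0025) and -0.56 ± 0.05 (adjusted p = 5.7e-17). Of its exonic bases 14.1% are shared with MYADML2 on the same strand and 15.6% with the opposite strand. ALDH18A1 was at 197 and 198 CPM in DMSO and, with panobinostat, at 213 and 213 CPM at 2 h, 187 and 181 at 5 h, and 59.2 and 61.5 at 20 h. Romidepsin gave ALDH18A1 levels of 195 and 195 CPM at 2 h, 179.8 and 174 at 5 h, and 66.8 and 71.8 at 20 h. Ricolinostat gave ALDH18A1 levels of 225 and 221 CPM at 2 h, 212 and 201 at 5 h, and 148 and 156 at 20 h. ALDH18A1 stayed between 174 and 225 CPM at 2 and 5 h of the 3 inhibitors, and between 59.2 and 71.8 CPM at 20 h of panobinostat and romidepsin. At 20 h it changed by -1.71 ± 0.05 (adjusted p = 6.4e-56) with panobinostat, -1.51 ± 0.05 (adjusted p = 4.5e-51) with romidepsin and -0.38 ± 0.05 (adjusted p = 1.5e-11) with ricolinostat. Its panobinostat values were 0.11 ± 0.04 (adjusted p = 0.045, but up to 0.7 without either DMSO library or either panobinostat 2 h library, 0.33 by DESeq2, 0.33 with DESeq2-type size factors, 0.23 without the low-count filter and 0.078 with only the compared groups fitted) at 2 h and -0.11 ± 0.05 (adjusted p = 0.038, but up to 0.12 without DMSO replicate 2 or panobinostat 5 h replicate 2 and 0.066 without the low-count filter, turning to 0.024 under library-size scaling, adjusted p = 0.66) at 5 h. Romidepsin gave ALDH18A1 -0.02 ± 0.04 (adjusted p = 0.92) at 2 h and -0.16 ± 0.04 (adjusted p = 0.0031, but 0.61 under library-size scaling) at 5 h. Ricolinostat gave ALDH18A1 0.17 ± 0.04 (adjusted p = 0.00099, but up to 0.48 without DMSO replicate 1 or either ricolinostat 2 h library) at 2 h and 0.06 ± 0.04 (adjusted p = 0.3) at 5 h.

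CTH, the enzyme that releases cysteine in the transsulfuration pathway, rose in all 3 inhibitors at 5 h. CTH was at 13.8 and 15.7 CPM in DMSO and, with panobinostat, at 34.96 and 35.5 CPM at 2 h, 51.5 and 43.8 at 5 h, and 18.1 and 22.2 at 20 h. Romidepsin gave CTH levels of 14.2 and 13.6 CPM at 2 h, 22.8 and 22.8 at 5 h, and 27.3 and 26.4 at 20 h. Ricolinostat gave CTH levels of 24.7 and 23.3 CPM at 2 h, 22.3 and 19.8 at 5 h, and 10.5 and 12.2 at 20 h. CTH was highest at 5 h of panobinostat, was above DMSO in the 5 and 20 h romidepsin libraries and was below DMSO in both libraries at 20 h of ricolinostat. With panobinostat CTH changed by 1.25 ± 0.10 (adjusted p = 7.3e-21), 1.68 ± 0.10 (adjusted p = 6.2e-30) and 0.46 ± 0.10 (adjusted p = 4.3e-05, but 0.09 without panobinostat 20 h replicate 2). Romidepsin gave CTH -0.09 ± 0.11 (adjusted p = 0.76), 0.62 ± 0.10 (adjusted p = 3.5e-07) and 0.86 ± 0.10 (adjusted p = 6.2e-13). Ricolinostat gave CTH 0.70 ± 0.10 (adjusted p = 9e-09), 0.51 ± 0.10 (adjusted p = 2.1e-05, but 0.053 without ricolinostat 5 h replicate 1) and -0.38 ± 0.11 (adjusted p = 0.0047, but up to 0.15 without DMSO replicate 2 or ricolinostat 20 h replicate 1). CBS, the enzyme before CTH, ranged from 1.38 to 8.22 CPM and passed in no contrast with DMSO. In other fits it did. With panobinostat CBS had an adjusted p of 8.8e-05 without the low-count filter at 20 h and an adjusted p of 0.029 without the low-count filter at 2 h. With romidepsin it had an adjusted p of 0.034 by DESeq2, 6.2e-06 without the low-count filter and 0.00012 with only the compared groups fitted at 20 h. With ricolinostat it had an adjusted p of 0.005 without the low-count filter and 0.024 with only the compared groups fitted at 20 h and an adjusted p of 0.017 without the low-count filter at 2 h. Its DMSO libraries differed from each other (2.46 and 5.96 CPM), and a near-identical annotated copy of CBS on chromosome 21 could take some of its reads, so its counts are uncertain.

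CHAC1, which degrades glutathione and whose promoter holds a match, rose with panobinostat and fell with ricolinostat at 20 h. CHAC1 ranged from 3.22 to 16.4 CPM over the 20 libraries, with DMSO at 7.07 and 7.79, and all 6 panobinostat libraries were the highest of the 20. It changed by 0.94 ± 0.15 (adjusted p = 1.2e-07), 0.995 ± 0.15 (adjusted p = 1.5e-08) and 1.13 ± 0.15 (adjusted p = 5.5e-11) with panobinostat and by -1.02 ± 0.18 (adjusted p = 1.9e-06) at 20 h of ricolinostat. With romidepsin CHAC1 was at 0.10 ± 0.16 (adjusted p = 0.85), -0.37 ± 0.17 (adjusted p = 0.09) and -0.12 ± 0.16 (adjusted p = 0.53), which did not pass. GPT2, the mitochondrial alanine transaminase, ranged from 104 to 271 CPM, with DMSO at 169 and 176. It rose by 0.62 ± 0.05 and 0.48 ± 0.05 at 2 and 5 h of panobinostat and by 0.52 ± 0.05 and 0.47 ± 0.05 at 2 and 5 h of ricolinostat (largest adjusted p = 2e-15). At 20 h GPT2 was at -0.54 ± 0.05, -0.56 ± 0.05 and -0.67 ± 0.05 with panobinostat, romidepsin and ricolinostat (largest adjusted p = 2.6e-19), and romidepsin at 5 h gave GPT2 -0.21 ± 0.05 (adjusted p = 0.00021, but 0.18 under library-size scaling). ASNS, asparagine synthetase, a textbook ATF4 target whose promoter holds a match, ranged from 0.846 to 2.96 CPM. It was at 0.95 ± 0.35 (adjusted p = 0.017, but up to 0.12 without either DMSO library or panobinostat 5 h replicate 2 and 0.058 without the low-count filter) at 5 h and 0.90 ± 0.34 (adjusted p = 0.016, but up to 0.25 without either DMSO library or panobinostat 20 h replicate 1 and 0.066 without the low-count filter) at 20 h of panobinostat, and at 1.32 ± 0.34 (adjusted p = 0.0012) at 5 h of romidepsin. Of its exonic bases 44.6% are shared with an annotated gene on the same strand, so reads may have been withheld from ASNS and its level is uncertain.

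SESN2 and DDIT4 (REDD1) both act as brakes on the growth kinase mTORC1. SESN2 was at 38.4 and 42.1 CPM in DMSO and, with panobinostat, at 134 and 133 CPM at 2 h, 155 and 144 at 5 h, and 96.03 and 96.1 at 20 h. Romidepsin gave SESN2 levels of 46.6 and 46.8 CPM at 2 h, 67.6 and 67.9 at 5 h, and 98.4 and 101 at 20 h. Ricolinostat gave SESN2 levels of 94.1 and 95.4 CPM at 2 h, 65.3 and 68.9 at 5 h, and 35.3 and 33.8 at 20 h. Panobinostat libraries held the highest SESN2 levels, at 2 and 5 h, and only those at 20 h of ricolinostat lay below both DMSO libraries. SESN2 changed by 1.73 ± 0.06 (adjusted p = 1.4e-47), 1.89 ± 0.06 (adjusted p = 1.5e-51) and 1.25 ± 0.06 (adjusted p = 1.7e-37) with panobinostat. Romidepsin gave SESN2 0.21 ± 0.06 (adjusted p = 0.018, but up to 0.45 without DMSO replicate 1 or either romidepsin 2 h library and 0.09 without the low-count filter), 0.75 ± 0.06 (adjusted p = 1.5e-19) and 1.31 ± 0.06 (adjusted p = 1.2e-38). Ricolinostat gave SESN2 1.23 ± 0.06 (adjusted p = 8.4e-35), 0.73 ± 0.06 (adjusted p = 2.5e-19) and -0.22 ± 0.07 (adjusted p = 0.0044, but up to 0.17 without DMSO replicate 2 or ricolinostat 20 h replicate 2 and 0.15 under library-size scaling). DDIT4 was at 169 and 153 CPM in DMSO and, with panobinostat, at 393 and 344 CPM at 2 h, 303 and 304 at 5 h, and 323 and 328 at 20 h. Romidepsin gave DDIT4 levels of 91.2 and 95.5 CPM at 2 h, 108 and 105 at 5 h, and 847 and 816 at 20 h. Ricolinostat gave DDIT4 levels of 154 and 148 CPM at 2 h, 153 and 148 at 5 h, and 176 and 174 at 20 h. DDIT4 was above DMSO with panobinostat at each time, below it at 2 and 5 h of romidepsin, and highest at 20 h of romidepsin. Per kilobase DDIT4 reached 404 CPM per kb there, when ATF4 was at 117. The DDIT4 changes were 1.19 ± 0.05 (adjusted p = 6.9e-41), 0.91 ± 0.05 (adjusted p = 4.9e-33) and 1.01 ± 0.05 (adjusted p = 4.5e-37) with panobinostat. With romidepsin DDIT4 was at -0.79 ± 0.05 (adjusted p = 7e-25), -0.59 ± 0.05 (adjusted p = 5.9e-19) and 2.37 ± 0.05 (adjusted p = 4e-65). Ricolinostat gave DDIT4 -0.09 ± 0.05 (adjusted p = 0.12, passing at 0.037 by DESeq2, 0.016 with DESeq2-type size factors and 0.022 with only the compared groups fitted), -0.10 ± 0.05 (adjusted p = 0.11, passing at 0.017 by DESeq2, 0.0066 with DESeq2-type size factors and 0.04 with only the compared groups fitted) and 0.12 ± 0.05 (adjusted p = 0.037, but up to 0.7 without DMSO replicate 2 or either ricolinostat 20 h library, 0.18 by DESeq2, 0.13 with DESeq2-type size factors and 0.22 without the low-count filter). An antisense gene shares 41.2% of the exonic bases of DDIT4, and its reads may not be told apart.

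XPOT exports transfer RNA from the nucleus, and EIF4EBP1 encodes 4E-BP1, which blocks cap-dependent translation when mTORC1 is off. XPOT was at 428 and 422 CPM in DMSO and, with panobinostat, at 295 and 308 CPM at 2 h, 208 and 198 at 5 h, and 96.97 and 97.7 at 20 h. Romidepsin gave XPOT levels of 379 and 388 CPM at 2 h, 339 and 339 at 5 h, and 137 and 136 at 20 h. Ricolinostat gave XPOT levels of 334 and 344 CPM at 2 h, 301 and 277 at 5 h, and 295 and 295 at 20 h. XPOT was below both DMSO libraries in all 18 inhibitor libraries. It changed by -0.49 ± 0.04 (adjusted p = 9.1e-20), -1.06 ± 0.04 (adjusted p = 7.3e-43) and -2.12 ± 0.04 (adjusted p = 3.6e-68) with panobinostat. Romidepsin gave XPOT -0.15 ± 0.04 (adjusted p = 0.01, but up to 0.14 without DMSO replicate 1 or romidepsin 2 h replicate 1 and 0.082 under library-size scaling), -0.32 ± 0.04 (adjusted p = 8.8e-11) and -1.63 ± 0.04 (adjusted p = 1.6e-58). Ricolinostat gave XPOT -0.32 ± 0.04 (adjusted p = 4.4e-11), -0.55 ± 0.04 (adjusted p = 3.6e-22) and -0.53 ± 0.04 (adjusted p = 1.6e-20). EIF4EBP1 was at 64.5 and 63.5 CPM in DMSO and, with panobinostat, at 62.7 and 63.7 CPM at 2 h, 46.2 and 46.1 at 5 h, and 23.4 and 24.6 at 20 h. Romidepsin gave EIF4EBP1 levels of 64.96 and 64.3 CPM at 2 h, 65.4 and 55.7 at 5 h, and 18.9 and 18.6 at 20 h. Ricolinostat gave EIF4EBP1 levels of 63.4 and 64.8 CPM at 2 h, 62.6 and 56.3 at 5 h, and 44.2 and 49.6 at 20 h. EIF4EBP1 lay within a few CPM of DMSO at 2 h of each inhibitor and was lowest at 20 h of romidepsin. Panobinostat gave EIF4EBP1 -0.02 ± 0.07 (adjusted p = 0.9), -0.47 ± 0.07 (adjusted p = 3.5e-09) and -1.41 ± 0.07 (adjusted p = 1e-34). Romidepsin gave EIF4EBP1 0.01 ± 0.07 (adjusted p = 0.98), -0.08 ± 0.07 (adjusted p = 0.43) and -1.77 ± 0.08 (adjusted p = 1.8e-40). Ricolinostat gave EIF4EBP1 0.0029 ± 0.07 (adjusted p = 1), -0.10 ± 0.07 (adjusted p = 0.25) and -0.45 ± 0.07 (adjusted p = 4.2e-08).

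Of the members that encode secreted or surface proteins, VEGFA, the vascular growth factor, fell in each contrast. VEGFA was at 142 and 151 CPM in DMSO and, with panobinostat, at 84.1 and 86.3 CPM at 2 h, 55.1 and 50.8 at 5 h, and 44.7 and 45.5 at 20 h. Romidepsin gave VEGFA levels of 101 and 100.4 CPM at 2 h, 74.5 and 73.7 at 5 h, and 65.97 and 63.8 at 20 h. Ricolinostat gave VEGFA levels of 124 and 126 CPM at 2 h, 111 and 113 at 5 h, and 124 and 128 at 20 h. All 18 inhibitor libraries had less VEGFA than either DMSO library. VEGFA changed by -0.78 ± 0.05 (adjusted p = 3.9e-25), -1.47 ± 0.06 (adjusted p = 3.6e-44) and -1.70 ± 0.05 (adjusted p = 1e-50) with panobinostat. Romidepsin gave VEGFA -0.54 ± 0.05 (adjusted p = 8.9e-15), -0.98 ± 0.05 (adjusted p = 1.2e-30) and -1.17 ± 0.05 (adjusted p = 3.5e-38). Ricolinostat gave VEGFA -0.23 ± 0.05 (adjusted p = 0.00015), -0.39 ± 0.05 (adjusted p = 4.8e-10) and -0.21 ± 0.05 (adjusted p = 0.00045, but 0.08 under library-size scaling). STC2, stanniocalcin, a secreted glycoprotein, was near the low end of detection. STC2 was at 4.23 and 4.99 CPM in DMSO and, with panobinostat, at 3.59 and 2.84 CPM at 2 h, 2.05 and 2.19 at 5 h, and 1.17 and 1.11 at 20 h. Romidepsin gave STC2 levels of 4.91 and 5.16 CPM at 2 h, 3.47 and 4.41 at 5 h, and 0.633 and 1.67 at 20 h. Ricolinostat gave STC2 levels of 3.58 and 3.89 CPM at 2 h, 3.31 and 4.63 at 5 h, and 3.72 and 2.90 at 20 h. The 20 h libraries of panobinostat and romidepsin were the lowest, and the 2 romidepsin ones differed from each other. STC2 was at -0.53 ± 0.25 (adjusted p = 0.079, passing at 0.043 with only the compared groups fitted), -1.12 ± 0.27 (adjusted p = 0.00015) and -2.01 ± 0.28 (adjusted p = 2.3e-10) with panobinostat. At 20 h of romidepsin it changed by -1.97 ± 0.28 (adjusted p = 9.7e-10), and its other values did not pass. VLDLR, a lipoprotein receptor, stayed between 0.374 and 1.02 CPM and passed in no contrast. The hormone FGF21 had 4 counts in 1 library of romidepsin at 20 h and 0 in the others.

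Within each inhibitor the members were also compared between times, which does not use DMSO. No vehicle library is labelled with these times, so time in culture and time with the inhibitor cannot be told apart here either. The step from 5 to 20 h is the longer, so the sizes of the 2 steps are not matched in time. With panobinostat 7 members rose and 15 fell from 2 to 5 h (all genes 19.8% and 22.2%), and 5 rose and 19 fell from 5 to 20 h (all genes 27.5% and 28.9%). With romidepsin 7 rose and 11 fell in the first step (8.40% and 11.9%), and 9 and 19 in the later one (33.4% and 29.4%). With ricolinostat the counts were 0 and 13 (6.69% and 8.58%), then 5 and 16 (17.2% and 20.7%). From 5 to 20 h DDIT3 rose by 1.33 ± 0.10 (adjusted p = 1.6e-22) with panobinostat and by 2.42 ± 0.11 (adjusted p = 6.6e-37) with romidepsin. PPP1R15A rose by 1.17 ± 0.05 (adjusted p = 4.9e-43) and 2.34 ± 0.05 (adjusted p = 7.2e-67) in the same steps. DDIT4 rose by 2.96 ± 0.05 (adjusted p = 1.8e-71) with romidepsin, the largest step of any member between times. The enzymes fell in the same interval, MTHFD1L at -1.62 ± 0.07 and -2.54 ± 0.07, ALDH1L2 at -1.74 ± 0.06 and -2.36 ± 0.06, and ALDH18A1 at -1.60 ± 0.05 and -1.35 ± 0.05 with panobinostat and romidepsin (largest adjusted p = 2.5e-39). SESN2 and CTH, up early with panobinostat, came down from 5 to 20 h, at -0.64 ± 0.05 (adjusted p = 9.4e-20) and -1.23 ± 0.09 (adjusted p = 2.2e-22). ATF5 went the other way there, at 0.85 ± 0.13 (adjusted p = 6.1e-09). With ricolinostat the steps from 5 to 20 h were -1.13 ± 0.05 (adjusted p = 2.8e-39) for GPT2, -0.96 ± 0.06 (adjusted p = 1.9e-25) for SESN2 and -0.89 ± 0.11 (adjusted p = 1.5e-11) for CTH. Under library-size scaling the counts became 10 higher and 11 lower from 2 to 5 h of panobinostat (all genes 5409 and 3221 of 20957). From 2 to 5 h of romidepsin they became 7 higher and 6 lower (all genes 2613 and 1407). The falls from 2 to 5 h of ricolinostat became 8 (all genes 1286), which was also their number without ricolinostat 2 h replicate 1. The 5 rises from 5 to 20 h of panobinostat became 3 without panobinostat 5 h replicate 2 or panobinostat 20 h replicate 2.

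Romidepsin and panobinostat were given at the same concentration, so they can be compared at each of the 3 times without DMSO, for 31 tested members. Equal concentration need not be equal inhibition, which was not measured. At 2 h 3.55% of all genes were higher and 4.62% lower than in DMSO with romidepsin, beside 20.8% and 18.1% with panobinostat. The kind of inhibitor and the strength or speed of inhibition cannot be told apart. At 2 h 10 members were higher and 11 lower with romidepsin than with panobinostat (all genes 17.3% and 19.8%), at 5 h 12 and 14 (all genes 24.8% and 25.9%), and at 20 h 11 and 5 (all genes 23.4% and 18.3%). The last count became 8 higher and 9 lower under library-size scaling (all genes 4288 and 4557 of 20957). DDIT3, with 18.6 and 18.02 CPM in the 2 h panobinostat libraries and 3.77 and 4.41 in the romidepsin ones, differed by -2.16 ± 0.14 (adjusted p = 4.2e-27) at 2 h, -1.48 ± 0.12 (adjusted p = 4.6e-20) at 5 h and -0.38 ± 0.09 (adjusted p = 0.00031, but 0.089 without romidepsin 20 h replicate 2) at 20 h. DDIT4 had 393 and 344 CPM with panobinostat and 91.2 and 95.5 with romidepsin at 2 h, and 323 and 328 and 847 and 816 at 20 h. DDIT4 was thus higher with panobinostat early and with romidepsin late, with differences of -1.98 ± 0.05 (adjusted p = 4.6e-56) at 2 h, -1.51 ± 0.05 (adjusted p = 1.2e-47) at 5 h and 1.35 ± 0.04 (adjusted p = 1.1e-46) at 20 h. The groups did not overlap at any of the 3 times. PPP1R15A differed by -1.29 ± 0.05 (adjusted p = 1.1e-40) at 2 h, -1.01 ± 0.05 (adjusted p = 1.2e-34) at 5 h and 0.16 ± 0.04 (adjusted p = 0.0014, but 0.058 under library-size scaling) at 20 h. SESN2 differed by -1.51 ± 0.06 (adjusted p = 4.2e-43) and -1.14 ± 0.06 (adjusted p = 2.9e-35) at 2 and 5 h, and at 20 h by 0.06 ± 0.05 (adjusted p = 0.45), with a 95% interval from -0.05 to 0.16. CTH differed by -1.34 ± 0.10 (adjusted p = 4.3e-22) at 2 h, -1.06 ± 0.09 (adjusted p = 2.6e-18) at 5 h and 0.41 ± 0.10 (adjusted p = 0.00019) at 20 h. CHAC1 was lower with romidepsin at each time, at -0.84 ± 0.15 (adjusted p = 2e-06) at 2 h, -1.36 ± 0.16 (adjusted p = 1.4e-12) at 5 h and -1.25 ± 0.15 (adjusted p = 5.5e-12) at 20 h. The opposite order held for ATF5 at 2 and 5 h, with 0.76 ± 0.09 (adjusted p = 1.6e-11) and 2.13 ± 0.12 (adjusted p = 1.4e-30), and for CEBPG, with 1.02 ± 0.08 (adjusted p = 4e-22) and 0.93 ± 0.08 (adjusted p = 1.9e-18). At 20 h CEBPG differed by 0.01 ± 0.08 (interval -0.15 to 0.17, adjusted p = 0.95). The kinase EIF2AK3 was higher with romidepsin at 5 and 20 h, at 0.83 ± 0.05 (adjusted p = 9e-31) and 1.07 ± 0.05 (adjusted p = 4e-38), and EIF2AK4 at 20 h, at 0.85 ± 0.07 (adjusted p = 3e-21). ATF4 itself differed by -0.09 ± 0.04 (adjusted p = 0.065) at 2 h, -0.20 ± 0.04 (adjusted p = 2.8e-06) at 5 h and 0.15 ± 0.04 (adjusted p = 0.0012, but 0.095 without romidepsin 20 h replicate 1 and 0.065 under library-size scaling) at 20 h. For several enzymes the difference at 20 h did not pass, and the 95% interval bounds its size. MTHFD2 was at 0.01 ± 0.04 (interval -0.07 to 0.08) and GPT2 at -0.02 ± 0.05 (-0.11 to 0.08). PSPH was at -0.14 ± 0.08 (-0.31 to 0.02, adjusted p = 0.17, passing at 0.031 under library-size scaling). MTHFD1L was at -0.16 ± 0.08 (-0.32 to 0.00049, adjusted p = 0.11, passing at 0.016 under library-size scaling). PSAT1 gave 0.18 ± 0.60 at 20 h with a wide interval, -0.999 to 1.37, and so did VLDLR at 0.65 ± 0.51 (-0.35 to 1.66).

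**Figure D4:**
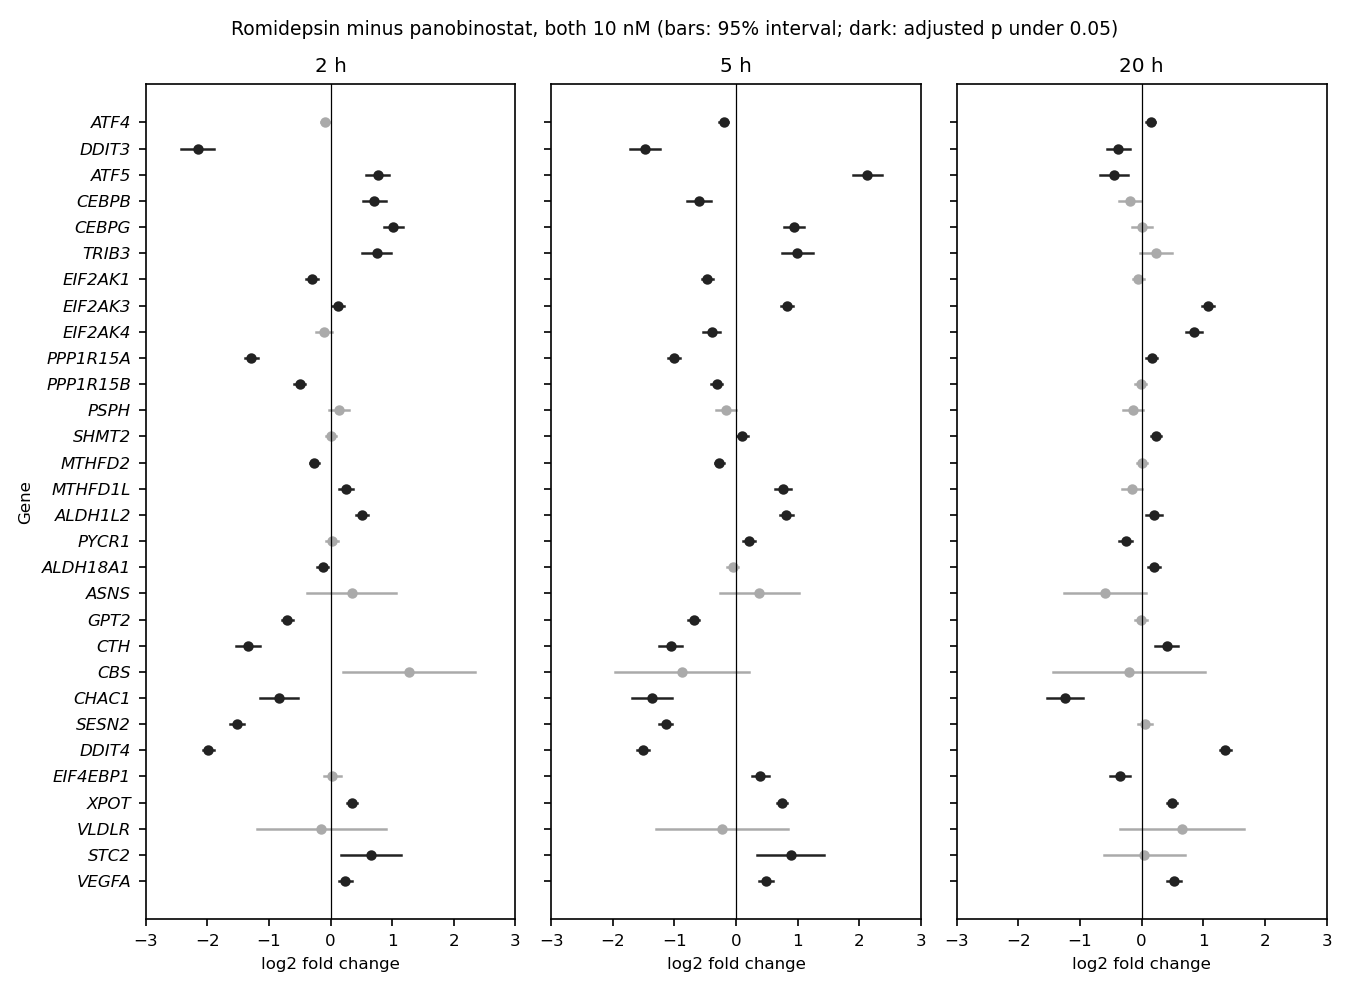
Log2 difference between romidepsin and panobinostat (horizontal axis, positive where romidepsin is higher) for 30 tested members in rows at 2, 5 and 20 h; points are estimates, bars 95% intervals, dark where adjusted p is under 0.05 and grey otherwise. DDIT3, PPP1R15A, SESN2, DDIT4 and CTH lie to the left at 2 and 5 h, and DDIT4 lies to the right at 20 h (1.35).

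Ricolinostat was used at another dose than the other inhibitors, so its values stand beside theirs without a test between them. At 2 h the genes SESN2 (1.23 ± 0.06), DDIT3 (0.84 ± 0.13), CTH (0.70 ± 0.10), GPT2 (0.52 ± 0.05), PPP1R15B (0.48 ± 0.04) and PPP1R15A (0.47 ± 0.05) rose with ricolinostat. With panobinostat the same genes were at 1.73 ± 0.06, 1.48 ± 0.12, 1.25 ± 0.10, 0.62 ± 0.05, 0.66 ± 0.04 and 0.68 ± 0.05 at that time. ALDH18A1 and EIF2AK1 also rose at 2 h of ricolinostat, though not in every fit without 1 library. DDIT4, CHAC1 and PSAT1 rose at 2 h of panobinostat and not of ricolinostat. Mean DDIT4 levels were 369 and 151 CPM in that order (DMSO 161), and those of CHAC1 14.3 and 7.85 (DMSO 7.43). By 20 h of ricolinostat DDIT3, SESN2 and CTH were at -0.36 ± 0.15 (adjusted p = 0.054, passing at 0.046 by DESeq2 and 0.036 with DESeq2-type size factors), -0.22 ± 0.07 (adjusted p = 0.0044, but up to 0.17 without DMSO replicate 2 or ricolinostat 20 h replicate 2 and 0.15 under library-size scaling) and -0.38 ± 0.11 (adjusted p = 0.0047, but up to 0.15 without DMSO replicate 2 or ricolinostat 20 h replicate 1), while at 20 h of panobinostat they were at 3.02 ± 0.11 (adjusted p = 4.3e-45), 1.25 ± 0.06 (adjusted p = 1.7e-37) and 0.46 ± 0.10 (adjusted p = 4.3e-05, but 0.09 without panobinostat 20 h replicate 2).

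The rest of the pathway was followed through 5 further lists, whose shares can be read against the background percentages given above for the same contrasts. Those percentages are from the main fit. Library-size scaling gave all genes 7495 higher and 4453 lower at 5 h of panobinostat, and 10309 and 5332 at 20 h. It gave 4212 and 1699 at 5 h of romidepsin, 9654 and 4950 at 20 h, and 4389 and 2242 at 20 h of ricolinostat. DESeq2 gave 3608 and 4015 at 2 h of panobinostat and 507 and 1142 at 2 h of romidepsin. With ricolinostat DESeq2 gave 2878 and 3307 at 2 h, and 3015 and 3556 at 5 h. Of 28 other ATF4 target genes, 9 rose and 10 fell at 2 h, 10 and 15 at 5 h and 10 and 15 at 20 h of panobinostat (medians 0.02, -0.14 and -0.53). With romidepsin the counts were 0 and 10, 1 and 18, and 8 and 17 (medians -0.16, -0.25 and -0.82), and with ricolinostat 5 and 7, 5 and 13, and 3 and 21 (medians 0.05, -0.12 and -0.52). The counts under library-size scaling were 3 and 12 at 5 h of romidepsin. Genes of this list moved both ways at 20 h. The death receptor gene TNFRSF10B rose by 4.98 ± 0.09 and 3.998 ± 0.09 at 20 h of panobinostat and romidepsin, the stress factor ATF3 by 3.41 ± 0.09 and 3.16 ± 0.09, and BBC3, which encodes PUMA, by 4.32 ± 0.22 and 4.01 ± 0.22. The amino acid transporter SLC7A5 was at -2.19 ± 0.04 and -3.54 ± 0.05 in the same contrasts, the glycine transporter SLC6A9 at -4.43 ± 0.23 and -3.78 ± 0.22, and INHBE, an activin subunit, at -2.99 ± 0.29 and -2.28 ± 0.27, and all 3 fell. Of 16 genes for eIF2 and eIF2B subunits and regulators of the kinases, 6 rose and 7 fell at 2 h, 5 and 8 at 5 h and 2 and 11 at 20 h of panobinostat (medians 0.08, -0.31 and -0.50). With romidepsin the counts were 1 and 1, 1 and 8, and 0 and 13 (medians -0.04, -0.15 and -0.58), and with ricolinostat 6 and 5, 5 and 6, and 0 and 10 (medians 0.07, 0.08 and -0.21). The counts under library-size scaling were 5 and 8 at 20 h of panobinostat, 1 and 2 at 5 h of romidepsin, 2 and 10 at 20 h of romidepsin and 2 and 7 at 20 h of ricolinostat. The counts by DESeq2 were 0 and 1 at 2 h of romidepsin and 0 and 6 at 5 h of ricolinostat. GCN1, which activates GCN2, was at -1.83 ± 0.04 and -1.58 ± 0.04 at 20 h of panobinostat and romidepsin, and EIF2S2, the beta subunit of eIF2, at -1.63 ± 0.05 and -1.44 ± 0.05. OMA1 and DELE1, which carry mitochondrial stress to HRI, fell there too, OMA1 at -1.10 ± 0.11 and -0.90 ± 0.11 and DELE1 at -1.57 ± 0.08 and -1.41 ± 0.08. The fourth kinase, EIF2AK2 (PKR), fell by 0.94 ± 0.07 at 20 h of panobinostat, and its value at 20 h of romidepsin, -0.24 ± 0.07, became 0.00017 under library-size scaling.

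Of 16 tested folate and glycine one-carbon genes outside the members, 3 rose and 5 fell at 2 h, 3 and 8 at 5 h and 4 and 10 at 20 h of panobinostat (medians 0.02, -0.23 and -0.67). With romidepsin the counts were 3 and 0, 2 and 4, and 4 and 11 (medians -0.01, -0.05 and -0.80), and with ricolinostat 2 and 5, 3 and 5, and 1 and 9 (medians -0.05, -0.16 and -0.28). The counts under library-size scaling were 5 and 8 at 5 h of panobinostat and 6 and 0 at 5 h of romidepsin. The counts by DESeq2 were 2 and 6 at 2 h of panobinostat, 1 and 5 at 2 h of ricolinostat and 2 and 6 at 5 h of ricolinostat. TYMS, thymidylate synthase, was at -4.33 ± 0.08 and -3.41 ± 0.07 at 20 h of panobinostat and romidepsin, SFXN1, the mitochondrial serine carrier, at -2.60 ± 0.05 and -2.01 ± 0.05, and the cytosolic enzyme MTHFD1 at -1.54 ± 0.05 and -1.42 ± 0.05. Of 12 tested neighbouring amino acid enzymes, 5 rose and 1 fell at 2 h, 4 and 2 at 5 h and 7 and 3 at 20 h of panobinostat (medians 0.11, 0.41 and 0.57). With romidepsin the counts were 0 and 0, 1 and 2, and 6 and 4 (medians -0.05, -0.07 and 0.42), and with ricolinostat 2 and 1, 2 and 1, and 1 and 5 (medians 0.08, 0.03 and -0.14). The counts under library-size scaling were 8 and 2 at 20 h of panobinostat, 2 and 1 at 5 h of romidepsin and 2 and 4 at 20 h of ricolinostat. The counts by DESeq2 were 1 and 1 at 5 h of ricolinostat. BCAT1, a branched-chain transaminase, rose by 2.48 ± 0.37 and 3.85 ± 0.35 at 20 h, and OAT, ornithine aminotransferase, by 1.53 ± 0.04 and 1.05 ± 0.04, while GOT2 was at -1.13 ± 0.04 and -1.04 ± 0.04 and fell. The ATF6 and XBP1 branches of the endoplasmic reticulum stress response stand beside ATF4. Of 18 of their target genes, 12 rose and 2 fell at 2 h, 13 and 3 at 5 h and 6 and 7 at 20 h of panobinostat (medians 0.38, 0.35 and -0.08). With romidepsin the counts were 0 and 4, 2 and 7, and 4 and 10 (medians -0.11, -0.06 and -0.35), and with ricolinostat 12 and 1, 8 and 3, and 0 and 17 (medians 0.20, 0.12 and -0.42). The counts under library-size scaling were 11 and 5 at 20 h of panobinostat, 7 and 2 at 5 h of romidepsin and 8 and 10 at 20 h of romidepsin. SYVN1, a ubiquitin ligase of the endoplasmic reticulum, was at 1.16 ± 0.05 at 2 h of panobinostat and 1.02 ± 0.05 at 2 h of ricolinostat, and HERPUD1 at 0.89 ± 0.04 at 2 h of panobinostat. XBP1, which also marks plasma cells, was at -3.68 ± 0.04 and -2.63 ± 0.04 at 20 h of panobinostat and romidepsin. The summed level of the 10 plasma cell markers, of which XBP1 is one, was lowest at 20 h of panobinostat, and its part in these changes was not tested.

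**Figure D5:**
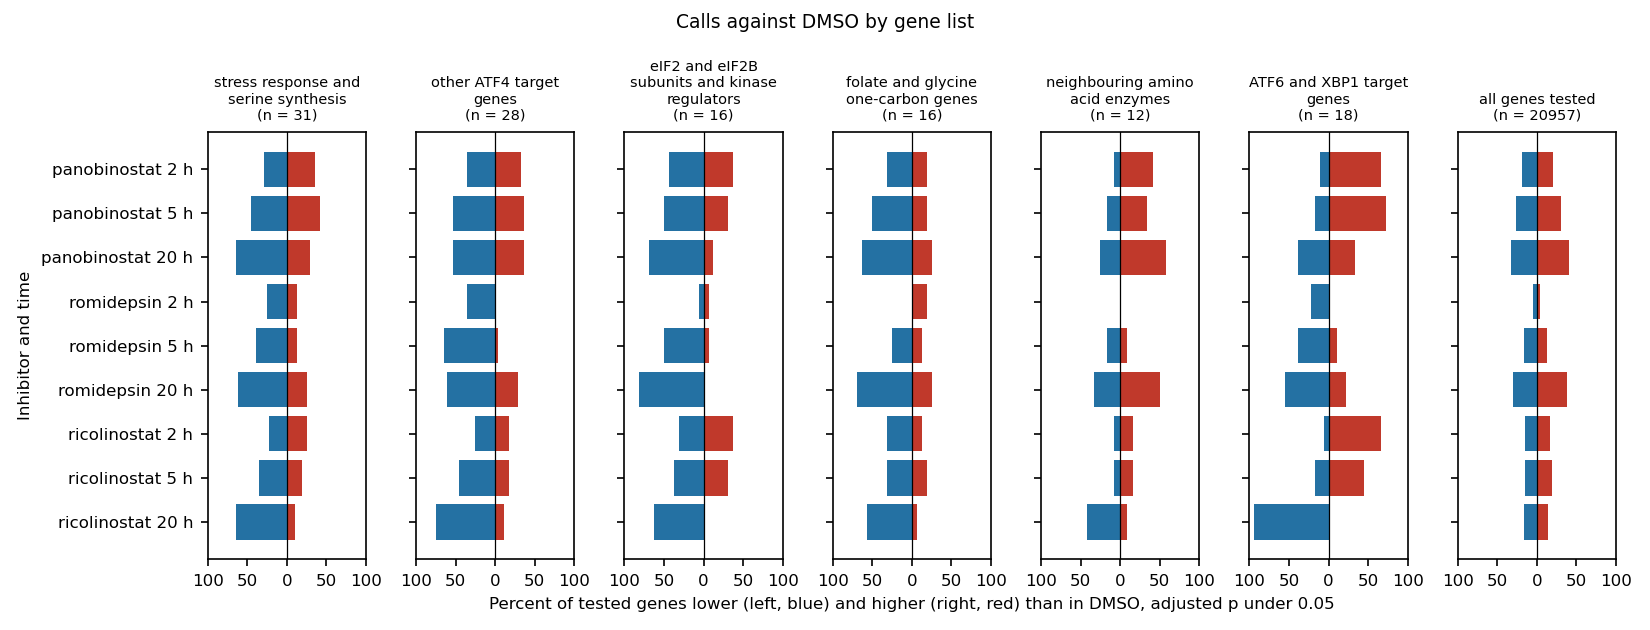
Percent of tested genes lower (blue, left of 0) and higher (red, right of 0) than in DMSO with adjusted p under 0.05, for the members, the 5 further lists and all 20957 genes tested, by inhibitor and time in rows. The lower share of the members is 20 of 31 at 20 h of panobinostat and 20 of 31 at 20 h of ricolinostat, and the ATF6 and XBP1 targets show 17 of 18 lower at 20 h of ricolinostat.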

How the data were processed

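The authors deposited a table of raw read counts per gene for 20 libraries, and the submitters' processing notes name the tools HISAT2, SAMtools and featureCounts and the build GRCh38. Whether counting used reads or pairs or kept the strand, and with which annotation release, is not given in the sources used here. Values of 2 (76134) and 4 (31263) in the deposited counts outnumber values of 1 (43567) and 3 (21277), so 1 fragment may count as 2. The replicates are independent biological ones per the labels, and no batch is given.

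Of 78932 gene identifiers, 61481 were matched to a symbol and 57356 to GENCODE 29, from which exon lengths and overlaps were taken. Genes passing edgeR's filter (minimum count 10, 20957 genes) were scaled by TMM and fitted over all 10 groups with the quasi-likelihood test (R 4.3.3, edgeR 4.0.16), p-values being Benjamini-Hochberg adjusted over all of them within each of 18 contrasts. Common dispersion came to 0.00175 (coefficient of variation between libraries 0.0419). The fit was run on counts simulated from the DMSO levels, with a fixed dispersion and a small set of changed genes. That simulation does not test the scaling or the spread in the real libraries. Alternatives included DESeq2 1.42.0 and leaving out each library. Between the 2 libraries of a group the chi-square per degree of freedom over genes was 2.36 to 6.48, and each library was counted as 1 replicate, as labelled. It was highest at 2 h of panobinostat (6.48), followed by 5 h of ricolinostat (4.25), and at most 2.93 in the other groups. The fit shares its spread over all groups, so SEs and p-values may be too small for the groups named. Counting a fragment as 2 would by itself raise the chi-square, so it does not measure the spread between cultures alone. Totals ran from 17264640 to 29088868 counts, and the floors (3 counts) cover counting error only. Intervals of a difference include the spread between libraries.

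The members, the further lists, the markers and the tests were chosen with earlier results of these data known. All 35 members are named. Values in every library are given for ATF4, DDIT3, ATF5, the kinases and the serine synthesis enzymes and for the largest passed changes of members that reach 5 CPM, and for some others whose low counts the text describes. In each further list up to 6 genes with the largest passed change were eligible, with EIF2AK2 added as the fourth kinase. Some genes of these lists are not reported here. Motif shares used all RefSeq promoter windows of GRCh38.p14.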

Additional observations from a re-analysis of the deposited data

Results flagged for a closer look

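Members are given here whose changes against DMSO passed in opposite directions in a pair of groups and whose difference between those groups passed. Each difference is taken between these same changes, so opposite signs make it larger than either. Its passing is therefore nearly fixed in advance and is not separate support. In each case the change against DMSO in the second group of the difference is named first, and the DMSO libraries are the same for both. The differences are log2 values from edgeR's quasi-likelihood test, with n = 2 libraries a group, all libraries of one group lay on the same side of the other group, and the causes were not tested.

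DDIT3 differed by -2.16 between romidepsin and panobinostat at 2 h (adjusted p = 4.2e-27), with 1.48 and -0.67 against DMSO. ATF5 differed by 0.76 between romidepsin and panobinostat at 2 h (adjusted p = 1.6e-11), with -0.48 and 0.29 against DMSO. PPP1R15A differed by -1.29 between romidepsin and panobinostat at 2 h (adjusted p = 1.1e-40), with 0.68 and -0.60 against DMSO. DDIT4 differed by -1.98 between romidepsin and panobinostat at 2 h (adjusted p = 4.6e-56), with 1.19 and -0.79 against DMSO. DDIT4 differed by -1.51 between these inhibitors at 5 h (adjusted p = 1.2e-47), with 0.91 and -0.59 against DMSO. GPT2 differed by -0.69 between these inhibitors at 5 h (adjusted p = 3e-25), with 0.48 and -0.21 against DMSO. EIF2AK4 differed by 0.85 between them at 20 h (adjusted p = 3e-21), with -0.50 and 0.35 against DMSO.

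ALDH18A1 differed by -0.21 between 5 and 2 h of panobinostat (adjusted p = 3.5e-05), with 0.11 and -0.11 against DMSO. PSPH differed by -0.58 between 20 and 5 h of panobinostat (adjusted p = 6.3e-10), with 0.26 and -0.32 against DMSO. PPP1R15B differed by -0.55 between 20 and 5 h of panobinostat (adjusted p = 3.6e-21), with 0.40 and -0.15 against DMSO. EIF2AK4 differed by -0.88 between 20 and 5 h of panobinostat (adjusted p = 6.2e-22), with 0.37 and -0.50 against DMSO. GPT2 differed by -1.02 between 20 and 5 h of panobinostat (adjusted p = 8.3e-38), with 0.48 and -0.54 against DMSO. ATF5 differed by -0.57 between 5 and 2 h of romidepsin (adjusted p = 5.3e-07), with 0.29 and -0.28 against DMSO. DDIT4 differed by 2.96 between 20 and 5 h of romidepsin (adjusted p = 1.8e-71), with -0.59 and 2.37 against DMSO. EIF2AK1 differed by -0.34 between 20 and 5 h of ricolinostat (adjusted p = 1.6e-09), with 0.16 and -0.19 against DMSO. EIF2AK3 differed by 0.32 between 20 and 5 h of ricolinostat (adjusted p = 2.6e-09), with -0.19 and 0.12 against DMSO. SESN2 differed by -0.96 between 20 and 5 h of ricolinostat (adjusted p = 1.9e-25), with 0.73 and -0.22 against DMSO. CTH differed by -0.89 between 20 and 5 h of ricolinostat (adjusted p = 1.5e-11), with 0.51 and -0.38 against DMSO. GPT2 differed by -1.13 between 20 and 5 h of ricolinostat (adjusted p = 2.8e-39), with 0.47 and -0.67 against DMSO.

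PPP1R15B at 20 h of panobinostat turned to 0.15 against DMSO under library-size scaling (adjusted p = 0.00052), and ALDH18A1 at 5 h of panobinostat to 0.024 (adjusted p = 0.66), so those pairs were not opposite under that scaling. DDIT3 at 2 h of romidepsin, against DMSO, had an adjusted p of 0.059 without romidepsin 2 h replicate 1. ATF5 at 2 h of romidepsin, against DMSO, had an adjusted p of up to 0.27 without either DMSO library or either romidepsin 2 h library and 0.12 by DESeq2. GPT2 at 5 h of romidepsin, against DMSO, had an adjusted p of 0.18 under library-size scaling. ALDH18A1 at 5 h of panobinostat, against DMSO, had an adjusted p of up to 0.12 without DMSO replicate 2 or panobinostat 5 h replicate 2 and 0.066 without the low-count filter. ALDH18A1 at 2 h of panobinostat, against DMSO, had an adjusted p of up to 0.7 without either DMSO library or either panobinostat 2 h library, 0.33 by DESeq2, 0.33 with DESeq2-type size factors, 0.23 without the low-count filter and 0.078 with only the compared groups fitted. PSPH at 20 h of panobinostat, against DMSO, had an adjusted p of 0.89 under library-size scaling. PSPH at 5 h of panobinostat, against DMSO, had an adjusted p of up to 0.081 without DMSO replicate 2 or panobinostat 5 h replicate 2. ATF5 at 5 h of romidepsin, against DMSO, had an adjusted p of up to 0.3 without DMSO replicate 2 or romidepsin 5 h replicate 2 and 0.22 under library-size scaling. EIF2AK1 at 20 h of ricolinostat, against DMSO, had an adjusted p of 0.15 under library-size scaling. EIF2AK1 at 5 h of ricolinostat, against DMSO, had an adjusted p of up to 0.59 without either DMSO library or either ricolinostat 5 h library, 0.12 by DESeq2, 0.11 with DESeq2-type size factors and 0.16 without the low-count filter. EIF2AK3 at 20 h of ricolinostat, against DMSO, had an adjusted p of up to 0.63 without either DMSO library or ricolinostat 20 h replicate 1, 0.092 by DESeq2, 0.086 with DESeq2-type size factors and 0.18 without the low-count filter. SESN2 at 20 h of ricolinostat, against DMSO, had an adjusted p of up to 0.17 without DMSO replicate 2 or ricolinostat 20 h replicate 2 and 0.15 under library-size scaling. CTH at 20 h of ricolinostat, against DMSO, had an adjusted p of up to 0.15 without DMSO replicate 2 or ricolinostat 20 h replicate 1. CTH at 5 h of ricolinostat, against DMSO, had an adjusted p of 0.053 without ricolinostat 5 h replicate 1.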

How the results depend on the processing

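The member counts were refitted with DESeq2-type size factors, with library size alone, without the low-count filter, with DESeq2, with only the compared groups, with a replicate block and without each of the 20 libraries in turn. Of 186 member calls against DMSO 160 passed in every fit without 1 library, as did 53 of 63 between romidepsin and panobinostat and 100 of 126 between times. Library size alone moved the members higher at 5 h of romidepsin from 4 to 7, those lower at 20 h with romidepsin than with panobinostat from 5 to 9, those lower from 2 to 5 h of romidepsin from 11 to 6 and those lower from 2 to 5 h of ricolinostat from 13 to 8. Members higher at 20 h of ricolinostat went from 3 to 1 with DESeq2-type size factors, with DESeq2 and without the filter, and those higher at 2 h of romidepsin from 4 to 2 with DESeq2 and to 1 without the filter. All genes higher at 20 h of ricolinostat numbered 2839, 2457 and 2563 in these fits, beside 3082 in the main fit. At 2 h of romidepsin they numbered 507 with DESeq2 and 514 without the filter, beside 743 in the main fit. Values that changed sign under library size alone were ALDH18A1 at 5 h (0.024) and PPP1R15B at 20 h of panobinostat (0.15), PPP1R15B at 20 h of romidepsin (0.070) and MTHFD2 from 2 to 5 h of panobinostat (0.10, against -0.031), and ATF4 from 5 to 20 h of ricolinostat ranged from -0.13 to 0.020, the latter without ricolinostat 5 h replicate 1. The cause was not tested.

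Without 1 library at a time, members higher than in DMSO numbered 9 to 10, 11 to 13 and 8 to 9 at 2, 5 and 20 h of panobinostat, 0 to 4, 3 to 4 and 8 each time with romidepsin, and 6 to 8, 2 to 5 and 1 to 3 with ricolinostat. Members lower numbered 9 to 11, 13 to 15 and 20 to 21, then 6 to 11, 10 to 15 and 19 to 20, then 7 to 11, 11 to 15 and 18 to 21 for the same inhibitors. Members higher from 5 to 20 h of panobinostat numbered 3 to 5, and those lower from 2 to 5 h of ricolinostat 8 to 14. A group left with 1 library is assumed to vary like the others. No share over all genes is given for these fits, so the ranges are not a result about the members alone.

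Replicate numbers were checked for pairing. Over 45 pairs of groups the correlation of the differences between replicates ran from -0.0248 to 0.0347. The check used all genes tested, where counting noise at low counts could hide a pairing, so it cannot exclude one. With the replicate number as a block, members higher and lower numbered 11 and 9, 13 and 14 and 9 and 20 with panobinostat. They numbered 3 and 8, 4 and 12 and 8 and 19 with romidepsin, and 8 and 8, 6 and 11 and 3 and 20 with ricolinostat. All genes higher and lower in that fit numbered 4329 and 3791, 6369 and 5399 and 8462 and 6745 with panobinostat. The all-gene numbers were 734 and 971, 2714 and 3462 and 8002 and 6232 with romidepsin. With ricolinostat they were 3536 and 3016, 3920 and 3205 and 3047 and 3440. Of 558 member tests the block changed 6, ending 4 calls (adjusted p from 0.051 to 0.064) and adding 2. Ended were ATF5 at 2 h of romidepsin (0.064), CBS from 5 to 20 h of panobinostat (0.052), DDIT3 from 5 to 20 h of ricolinostat and ASNS from 2 to 5 h of romidepsin (0.051 each). Added was PSPH at 2 h of ricolinostat (0.049) and between romidepsin and panobinostat at 5 h (0.046).

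Low counts limit PSAT1, ASNS, CBS, VLDLR and STC2, and 0 counts limit PHGDH. With 2 libraries a group, p-values rest on a spread shared over all groups.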
